A study of Mus musculus with 60 samples.

Results

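Collagens are the main structural proteins of the extracellular matrix, and their chains are modified inside the cell and crosslinked outside it by dedicated enzymes. The set holds 37 of 54232 gene IDs. They are 26 collagen chains, 5 lysyl oxidases, 2 prolyl hydroxylase subunits, 2 lysyl hydroxylases, the chaperone Serpinh1 and fibronectin. They were chosen by gene symbol, with earlier results of these data known. All 37 symbols were found. RNA was sequenced from liver, visceral fat and subcutaneous fat of mice kept for 12 weeks on 1 of 4 regimes, with 5 libraries per tissue and regime, 60 in all. The regimes were a Western diet with 42% fat eaten by transgenic mice in which NaKtide was induced, the same diet without NaKtide, a control chow with 11% fat with induced NaKtide, and that chow without NaKtide. The NaKtide peptide is modelled on a stretch of the Na,K-ATPase and was switched on by doxycycline in the food at 300 mg/kg. The labels name neither the promoter that drives NaKtide, nor the strain, sex or age of the mice, and they do not say whether mice without NaKtide carried the transgene or ate doxycycline. The transgene has no gene ID of its own in the tables, so its expression could not be checked.

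Fibrillar collagens form the tensile fibres of connective tissue, collagen IV forms the mesh of basement membranes, and collagen VI forms beaded filaments around cells, including fat cells. Prolyl and lysyl hydroxylases act on new chains in the endoplasmic reticulum, where Serpinh1 keeps the triple helix from aggregating, and lysyl oxidases link the finished fibrils through oxidised lysines. In fat, fibroblast-like progenitors, adipocytes and vessel cells make these proteins, and expanding fat remodels its collagen. In liver, stellate cells are the main source of fibrillar collagen, whereas hepatocytes secrete fibronectin and collagen XVIII.

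The 4 upstream sequences below belong to genes that the visceral and liver results turn on, and they differ in promoter type. Each is the 250 bases 5′ of the gene's RefSeq start in the mouse build GRCm38.p6, from the RefSeq promoter table. Capitals mark CCAAT and GGGCGG boxes on either strand (ATTGG and CCGCCC on the other).
Col3a1: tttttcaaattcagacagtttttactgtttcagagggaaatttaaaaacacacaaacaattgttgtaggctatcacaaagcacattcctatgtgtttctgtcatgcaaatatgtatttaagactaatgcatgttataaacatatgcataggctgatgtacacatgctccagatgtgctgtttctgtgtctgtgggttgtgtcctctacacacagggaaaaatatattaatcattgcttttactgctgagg
Col15a1: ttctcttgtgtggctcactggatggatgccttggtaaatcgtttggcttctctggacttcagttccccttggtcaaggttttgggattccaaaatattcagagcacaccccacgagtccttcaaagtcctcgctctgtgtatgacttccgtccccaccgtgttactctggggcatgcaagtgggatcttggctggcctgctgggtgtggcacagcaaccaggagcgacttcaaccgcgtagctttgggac
Col5a3: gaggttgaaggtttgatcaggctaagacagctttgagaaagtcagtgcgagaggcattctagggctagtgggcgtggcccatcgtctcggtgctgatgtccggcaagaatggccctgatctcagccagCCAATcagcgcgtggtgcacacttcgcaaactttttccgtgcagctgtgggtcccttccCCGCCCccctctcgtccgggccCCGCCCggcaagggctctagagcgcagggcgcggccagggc
Serpinh1: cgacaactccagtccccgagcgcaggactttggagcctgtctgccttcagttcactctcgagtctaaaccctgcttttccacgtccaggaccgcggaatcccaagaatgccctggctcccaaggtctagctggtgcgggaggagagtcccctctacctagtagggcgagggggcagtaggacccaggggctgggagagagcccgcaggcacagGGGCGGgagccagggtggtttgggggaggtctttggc

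The Col3a1 sequence lies at chr1:45311288-45311537 (plus strand), that of Col15a1 at chr4:47207762-47208011 (plus strand), that of Col5a3 at chr9:20815068-20815317 (minus strand) and that of Serpinh1 at chr7:99353240-99353489 (minus strand). Neither box was found upstream of Col3a1 or Col15a1, whereas Col5a3 held 1 CCAAT box and 2 GGGCGG boxes and Serpinh1 held 1 GGGCGG box. Of the 37 genes, 26 had an entry in the table, with 28 windows of 250 bases before to 50 after a start. A GGGCGG box was in 21 of the 28 windows (75.0%), against 32.7% of all 32851 windows, and a CCAAT box in 8 (28.6%), against 33.8%. TATAAA was in 2 of the 28 windows, against 12.4% of all. The genes Col4a1 and Col4a2 start head to head on chromosome 8, with 22 bases shared by their 5′ ends, Col4a3 and Col4a4 start 72 bases apart on chromosome 1, and Col4a5 and Col4a6 start 1309 bases apart on the X chromosome.

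Library depth was 3177783 to 9784337 counts in genes (median 6407495). Liver libraries held hepatocyte transcripts as labelled: 6 markers summed to 27943 to 33469.9, 29363 to 32964, 34089 to 39131 and 34953 to 41276 counts-per-million units (CPM) in Western diet + NaKtide, Western diet, control diet + NaKtide and control diet liver. Several fat libraries stood apart. Markers of epididymis, vas deferens and testis (9 of 10 detected in control diet visceral fat, Svs2 at 0) summed to 9792, 13345 and 12030 CPM in visceral control diet libraries 3, 4 and 5, to 5499 CPM in control diet + NaKtide library 1 and to 2605 and 15055 CPM in Western diet + NaKtide libraries 2 and 5, with 699 CPM in Western diet library 1 and 816 CPM in Western diet + NaKtide library 3. The other 12 visceral libraries stayed under 500 CPM. Adipocyte markers in visceral control diet library 5 summed to 463 CPM, against 5487 to 22658 CPM in the other visceral libraries. Skeletal muscle markers summed to 77.1 to 98321 CPM in subcutaneous control diet + NaKtide libraries and 7798 to 43141 CPM in subcutaneous control diet libraries, against 31.5 to 187 CPM on the Western diet without NaKtide. In Western diet + NaKtide library 1 the mesothelial markers, which belong to the lining of visceral fat, summed to 3.59 CPM in the library labelled visceral (35.3 to 241 CPM in the other 19) and to 90.6 CPM in that labelled subcutaneous (0.733 to 8.71 CPM in the other 19). These 2 libraries go against their depot labels. The labels do not say whether libraries of different tissues with the same number come from the same mouse. The p-values use spread within groups, pooled over each fit. In whole tissue, fewer cells of a type and less RNA per cell cannot be told apart.

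Transcript levels were first compared between genes with the deposited FPKM (fragments scaled to transcript length and library depth), as medians over the 20 libraries of a tissue. Serpinh1 led in both depots, at 224 FPKM in visceral and 213 FPKM in subcutaneous fat, with 9.22 FPKM in liver. The basement membrane pair followed, Col4a1 at 131 FPKM in visceral, 126 FPKM in subcutaneous fat and 4.65 FPKM in liver, and Col4a2 at 108, 101 and 4.76 FPKM. Col6a1 had 73.4, 47.8 and 2.14 FPKM in visceral fat, subcutaneous fat and liver, Col3a1 53.4, 80.2 and 3.01 FPKM, and Col1a1 49.1, 59.6 and 1.72 FPKM. Liver had another order, led by Col18a1, the source of endostatin, at 139.9 FPKM (28.7 FPKM in visceral and 31.1 FPKM in subcutaneous fat), and by Fn1, the fibronectin that hepatocytes release into plasma, at 76.9 FPKM (12.3 and 9.08 FPKM). Plod1, a lysyl hydroxylase, stood nearly level in the 3 tissues, at 14.8, 13.7 and 13.4 FPKM. At the low end, Col7a1, which builds the anchoring fibrils of skin, had 0.0607, 0.0523 and 0.0396 FPKM. In liver 12 of the 37 genes had too few counts for a test: Col4a3, Col4a4, Col4a5, Col4a6, Col6a5, Col6a6, Col7a1, Col8a1, Col8a2, Lox, Loxl4 and Plod2. In subcutaneous fat 3 did, Col4a6, Col6a5 and Col8a2, and in visceral fat none.

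**Figure D1:**
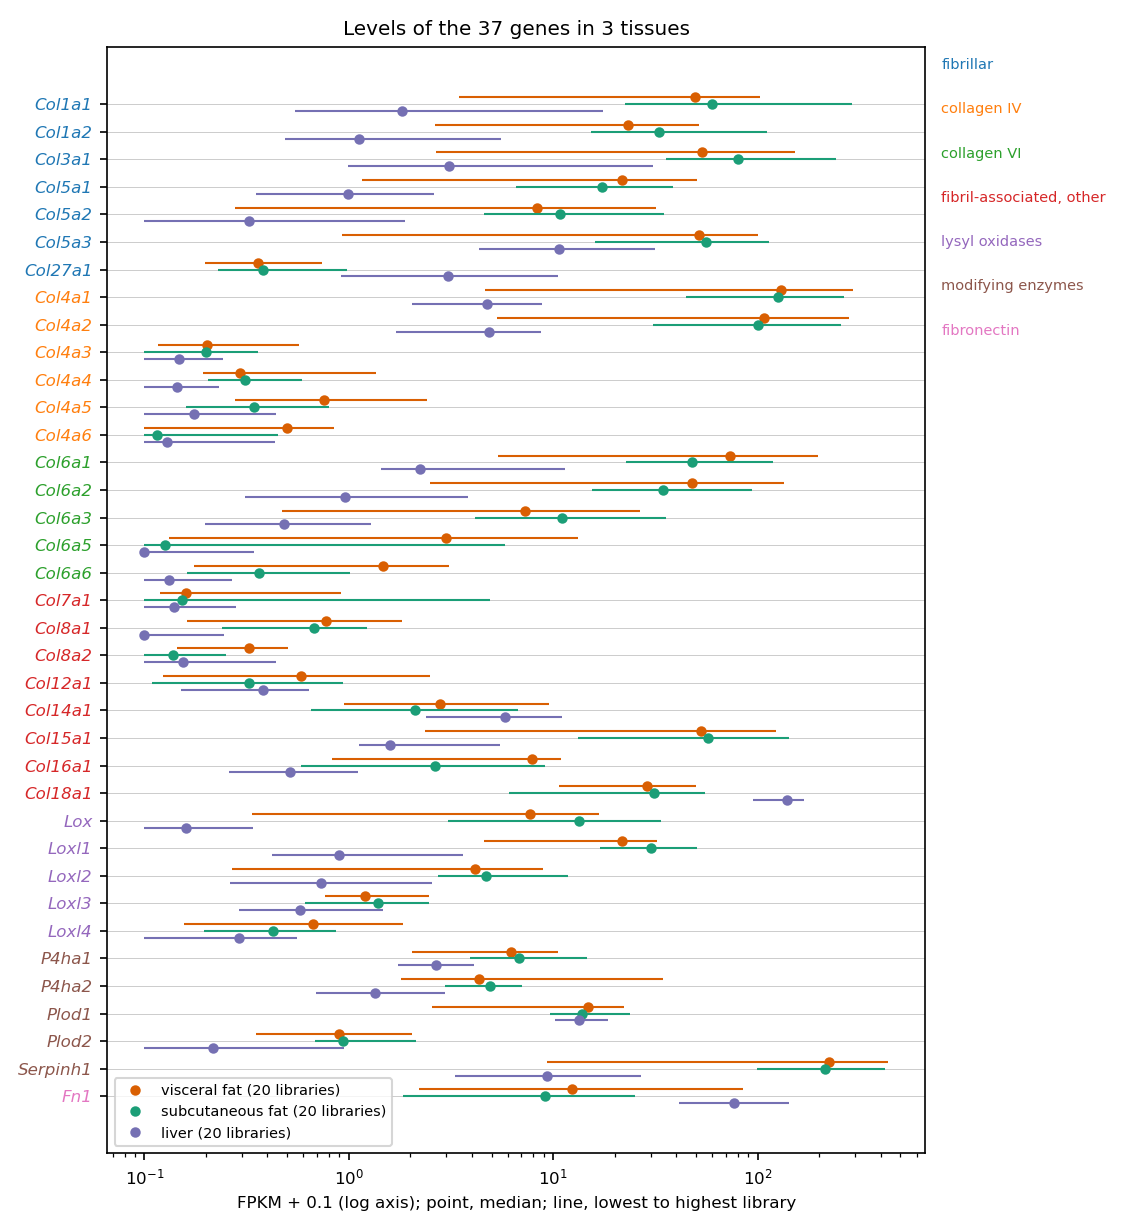
FPKM + 0.1 (log axis) of each of the 37 genes, grouped by role, as the median of 20 libraries per tissue (points) with a line between the lowest and highest library. Serpinh1 heads both fat depots at 224 and 213 FPKM, and Col18a1 heads the liver at 139.9 FPKM.

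The Western diet was compared with the control diet in visceral fat without NaKtide, which asks how the diet changed matrix transcripts in this depot. Most of the set was higher on the Western diet: 25 genes rose and 1, Col4a3, fell of 37 tested, against 10.5% of all 17235 genes tested higher and 14.3% lower (24.9% in all) (edgeR's quasi-likelihood test, Benjamini-Hochberg adjusted p under 0.05 over all genes). The median log2 fold change was 1.65 over the 37 genes and -0.22 over all genes. By role, 6 of 7 fibrillar chains, 3 of 6 collagen IV chains, 5 of 5 collagen VI chains, 5 of 8 fibril-associated and other collagens, 2 of 5 lysyl oxidases, 3 of 5 modifying enzymes and the chaperone, and Fn1 rose. In 23 of the 26 called genes the groups did not overlap (P4ha1, Col4a5 and Col4a3 did). Overlap was never counted over all genes. Summed over 6 macrophage markers, all detected, the libraries had 1393 to 2737 CPM on the Western diet and 103 to 515 CPM on the control diet. The part of these cells in the result was not tested. The 7 fibroblast progenitor markers summed to 787 to 1168 CPM on the Western diet and 162 to 1087 CPM on the control diet. Without the 8 libraries rich in tract and testis transcripts, 16 genes were called, all higher, over just control diet libraries 1 and 2. Leaving out 1 library gave 13 or 15 calls (control diet library 3 or 4). It gave 12, 15 or 17 (Western diet library 3, 4 or 5) and at most 30 (control diet library 2). Called without each of the 10 libraries in turn were 12 genes: Col1a1, Col5a1, Col5a2, Col6a1, Col6a2, Col12a1, Col15a1, Col16a1, Col18a1, Loxl4, Plod2 and Fn1.

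Levels are CPM scaled by edgeR's TMM factors within a tissue and are given for libraries 1 to 5 of each group in that order. Col1a1, a chain of collagen I, the main fibril former, had 391, 431, 865, 643 and 598 CPM in Western diet and 186, 133, 71.7, 88.8 and 25.9 CPM in control diet libraries. For Col1a1, the ranges did not overlap, Western diet libraries being the higher, and Col1a1 rose (log2 fold change 2.54 ± 0.53, adjusted p = 0.00392). Col1a2, the partner chain of collagen I, had 433, 332, 830.3, 465 and 442 CPM in Western diet and 235, 252, 121, 114 and 36.8 CPM in control diet libraries. For Col1a2, the lowest Western diet library exceeded the highest control diet library, and Col1a2 rose (log2 fold change 1.72 ± 0.505, adjusted p = 0.0250). Col3a1, collagen III, which shares fibrils with collagen I in soft tissue, had 880.1, 639, 1929, 844 and 847 CPM in Western diet and 409, 295, 200.1, 206 and 29.7 CPM in control diet libraries. For Col3a1, all 5 Western diet libraries were above all 5 control diet libraries, and Col3a1 rose (log2 fold change 2.17 ± 0.60, adjusted p = 0.0191). Col5a1, a chain of collagen V, which nucleates fibrils and limits their width, had 354, 271, 553, 441 and 476 CPM in Western diet and 106, 112, 38.6, 25.8 and 10.6 CPM in control diet libraries. For Col5a1, the ranges did not overlap, Western diet libraries being the higher, and Col5a1 rose (log2 fold change 2.83 ± 0.59, adjusted p = 0.00397). Col5a2, its partner chain in collagen V, had 162, 102, 391, 209.6 and 190.2 CPM in Western diet and 60.6, 45.4, 18.2, 15.9 and 2.01 CPM in control diet libraries. For Col5a2, the lowest Western diet library exceeded the highest control diet library, and Col5a2 rose (log2 fold change 2.89 ± 0.68, adjusted p = 0.00837). Col5a3, the third collagen V chain, rose as well (2.02 ± 0.64, adjusted p = 0.0332), while Col27a1, a fibrillar collagen of cartilage, was at -0.13 ± 0.41 (adjusted p = 0.826).

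Among the network collagens the basement membrane pair went the same way. Col4a1, the more abundant chain of the ubiquitous collagen IV, had 2290.1, 1294, 2829, 2479.9 and 2578 CPM in Western diet and 1087, 1039, 484, 265 and 39.9 CPM in control diet libraries. For Col4a1, all 5 Western diet libraries were above all 5 control diet libraries, and Col4a1 rose (log2 fold change 1.98 ± 0.62, adjusted p = 0.0318). Col4a2, the chain it assembles with, had 1847, 985, 2064, 1917 and 1982 CPM in Western diet and 767, 778, 328, 183 and 40.6 CPM in control diet libraries. For Col4a2, the ranges did not overlap, Western diet libraries being the higher, and Col4a2 rose (log2 fold change 2.07 ± 0.59, adjusted p = 0.0230). The chains of restricted basement membranes, known best from the kidney, had low levels: Col4a5 rose (1.48 ± 0.48, adjusted p = 0.0342), Col4a3 fell (-1.71 ± 0.58, adjusted p = 0.0412), and Col4a4 (-0.68 ± 0.59) and Col4a6 (1.23 ± 0.75) missed the threshold. The Col4a3 and Col4a6 counts (441 and 695 over the 60 libraries) overlap C430014B12Rik and Gm15079 on the opposite strand, with 399 and 693 counts, and are uncertain if the counting ignored strand. Col6a1, a core chain of collagen VI, had 427, 512, 937, 782 and 733 CPM in Western diet and 166, 169, 77.8, 84.7 and 27.1 CPM in control diet libraries. For Col6a1, the lowest Western diet library exceeded the highest control diet library, and Col6a1 rose (log2 fold change 2.69 ± 0.52, adjusted p = 0.00236). Col6a2, the second core chain, had 519.7, 558, 1001, 767 and 722 CPM in Western diet and 201, 193, 69.6, 74.5 and 23.3 CPM in control diet libraries. For Col6a2, all 5 Western diet libraries were above all 5 control diet libraries, and Col6a2 rose (log2 fold change 2.67 ± 0.56, adjusted p = 0.00400). Col6a3, the long chain from which endotrophin is cut, had 161, 89.6, 408, 188 and 184 CPM in Western diet and 72.3, 50.7, 18.8, 23.5 and 5.22 CPM in control diet libraries. For Col6a3, the ranges did not overlap, Western diet libraries being the higher, and Col6a3 rose (log2 fold change 2.59 ± 0.69, adjusted p = 0.0167). Col6a5, a chain that can replace Col6a3, had 129, 69.1, 159, 63.9 and 73.0 CPM in Western diet and 4.91, 36.1, 19.0, 9.89 and 11.3 CPM in control diet libraries. For Col6a5, the lowest Western diet library exceeded the highest control diet library, and Col6a5 rose (log2 fold change 2.60 ± 0.78, adjusted p = 0.0271). Col6a6, another alternative chain, rose too (2.07 ± 0.74, adjusted p = 0.0477).

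Col12a1, which decorates the surface of collagen I fibrils, had 19.7, 11.5, 47.3, 24.7 and 21.2 CPM in Western diet and 2.46, 2.26, 2.55, 3.30 and 6.70 CPM in control diet libraries. For Col12a1, all 5 Western diet libraries were above all 5 control diet libraries, and Col12a1 rose (log2 fold change 2.84 ± 0.51, adjusted p = 0.00143). Col16a1, a fibril-associated collagen, had 64.4, 81.5, 94.8, 84.4 and 84.4 CPM in Western diet and 13.4, 17.3, 12.7, 25.4 and 63.6 CPM in control diet libraries. For Col16a1, the ranges did not overlap, Western diet libraries being the higher, and Col16a1 rose (log2 fold change 1.63 ± 0.41, adjusted p = 0.0126). Col15a1, which ties basement membranes to fibrils, had 563, 446, 915, 686 and 712 CPM in Western diet and 216, 251, 90.9, 63.0 and 16.9 CPM in control diet libraries. For Col15a1, the lowest Western diet library exceeded the highest control diet library, and Col15a1 rose (log2 fold change 2.38 ± 0.56, adjusted p = 0.00883). Col18a1, the endostatin precursor of basement membranes, had 284, 302, 451, 355 and 376 CPM in Western diet and 137, 184, 151, 104 and 87.2 CPM in control diet libraries. For Col18a1, all 5 Western diet libraries were above all 5 control diet libraries, and Col18a1 rose (log2 fold change 1.42 ± 0.28, adjusted p = 0.00263). Col14a1, also fibril-associated, rose (1.497 ± 0.47, adjusted p = 0.0313). The vessel collagens Col8a1 (1.33 ± 0.63) and Col8a2 (0.37 ± 0.46) and Col7a1 (-2.56 ± 0.998) missed the threshold. Col18a1 overlaps Slc19a1 on the opposite strand, whose counts came to 4.02% of its own.

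Of the crosslinking and modifying enzymes, 5 of 10 rose with the chaperone counted in. Lox, the founding lysyl oxidase, had 101, 43.8, 103, 93.4 and 84.7 CPM in Western diet and 41.2, 50.3, 26.7, 16.3 and 1.34 CPM in control diet libraries. For Lox, the groups overlapped, with control diet library 2 reaching the Western diet range, and the log2 fold change of 1.65 ± 0.62 was not called (adjusted p = 0.0573). Loxl1, which acts on elastin as well as collagen, had 85.6, 125, 137, 106 and 109 CPM in Western diet and 74.8, 113, 48.2, 19.2 and 23.6 CPM in control diet libraries. For Loxl1, the groups overlapped, with control diet library 2 reaching the Western diet range, and the log2 fold change of 1.01 ± 0.44 was not called (adjusted p = 0.0929). Loxl2, a lysyl oxidase that acts on collagen IV, had 36.3, 27.4, 61.7, 44.4 and 39.2 CPM in Western diet and 23.6, 17.0, 7.45, 7.76 and 1.07 CPM in control diet libraries. For Loxl2, all 5 Western diet libraries were above all 5 control diet libraries, and Loxl2 rose (log2 fold change 1.88 ± 0.57, adjusted p = 0.0290). Loxl4 had 4.46, 4.76, 9.45, 9.505 and 7.93 CPM in Western diet and 1.70, 1.43, 1.37, 0.776 and 0.402 CPM in control diet libraries. For Loxl4, the ranges did not overlap, Western diet libraries being the higher, and Loxl4 rose (log2 fold change 2.66 ± 0.52, adjusted p = 0.00254). Loxl3 (0.77 ± 0.32) missed the threshold, and its reads are uncertain if the counting ignored strand, since Htra2 overlaps it on the other strand with 7905 counts against its 2237. P4ha1, a catalytic subunit of prolyl hydroxylase, had 33.4, 42.7, 55.5, 47.3 and 46.8 CPM in Western diet and 40.8, 28.8, 18.6, 10.3 and 19.4 CPM in control diet libraries. For P4ha1, the groups overlapped, with control diet library 1 reaching the Western diet range, and P4ha1 rose (log2 fold change 0.94 ± 0.32, adjusted p = 0.0419). Plod2, the lysyl hydroxylase of collagen telopeptides, had 11.6, 6.64, 13.5, 13.2 and 11.2 CPM in Western diet and 5.48, 5.84, 3.33, 1.75 and 3.35 CPM in control diet libraries. For Plod2, all 5 Western diet libraries were above all 5 control diet libraries, and Plod2 rose (log2 fold change 1.501 ± 0.36, adjusted p = 0.0103). Serpinh1, the collagen chaperone whose promoter is printed above, had 726, 1367, 1185, 1251 and 1209 CPM in Western diet and 695, 567, 330.4, 263 and 26.5 CPM in control diet libraries. For Serpinh1, the ranges did not overlap, Western diet libraries being the higher, and Serpinh1 rose (log2 fold change 1.61 ± 0.53, adjusted p = 0.0374). P4ha2 had 272 CPM in Western diet + NaKtide library 5 and 266 CPM in control diet library 4, both rich in tract and testis transcripts, and 13.8 to 49.7 CPM in the other 18. Its diet fold was -1.45 ± 0.74 (adjusted p = 0.148). Plod1 was at 0.92 ± 0.36 (adjusted p = 0.0681). Fn1, fibronectin, on which collagen fibrils assemble, had 415, 372, 1279, 479 and 454 CPM in Western diet and 126, 90.1, 39.8, 37.04 and 28.8 CPM in control diet libraries. For Fn1, the lowest Western diet library exceeded the highest control diet library, and Fn1 rose (log2 fold change 3.22 ± 0.64, adjusted p = 0.00294).

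**Figure D2:**
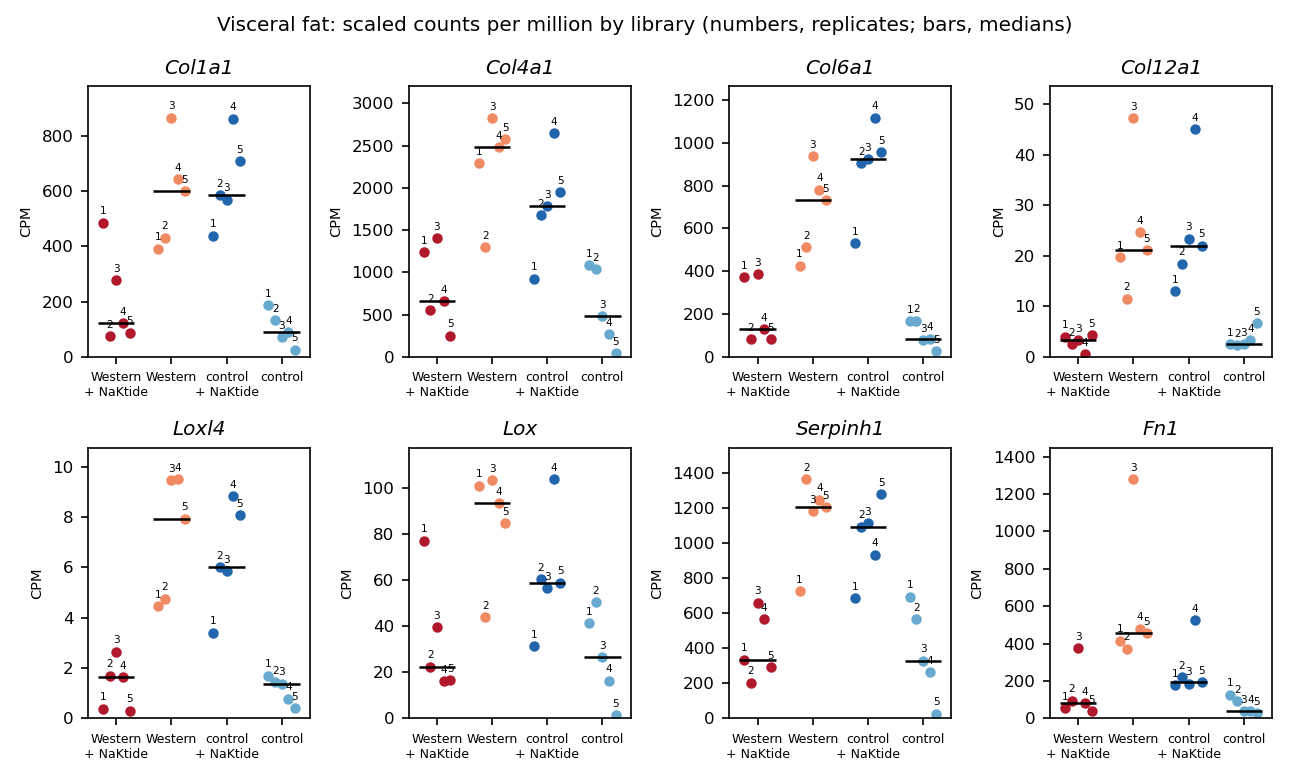
CPM of selected genes in the 20 visceral fat libraries (axes from 0; numbered points are libraries, bars are group medians), in the order Western diet + NaKtide, Western diet, control diet + NaKtide and control diet. Col12a1 stands at 11.5 to 47.3 CPM on the Western diet and 13.0 to 45.1 CPM with NaKtide on the control diet, above 0.464 to 4.28 CPM with both and 2.26 to 6.70 CPM with neither.

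NaKtide was then compared with no NaKtide on the Western diet in visceral fat. No gene of the set was higher and 8 fell, against 6.95% of all genes tested lower and 6.23% higher (13.2% in all); the median log2 fold change was -1.16 over the 37 genes and 0.03 over all genes. The 8 were 3 that attach to fibrils or basement membranes, Col12a1 (-3.09 ± 0.52, adjusted p = 0.00132), Col16a1 (-2.44 ± 0.42, adjusted p = 0.00167) and Col18a1 (-0.96 ± 0.27, adjusted p = 0.0288), the network chains Col6a1 (-1.68 ± 0.499, adjusted p = 0.0345) and Col4a5 (-1.47 ± 0.48, adjusted p = 0.0485), the enzymes Loxl4 (-2.40 ± 0.51, adjusted p = 0.00634) and Plod2 (-1.26 ± 0.36, adjusted p = 0.0304), and Fn1 (-2.22 ± 0.61, adjusted p = 0.0254). The groups did not overlap for 5 of them, the exceptions being Col18a1, Fn1 and Col4a5 (overlap was not counted over all genes). Without Western diet library 3 or Western diet + NaKtide libraries 4 or 5 the count was 3, without Western diet libraries 4 or 5 or Western diet + NaKtide library 2 it was 4, and without Western diet + NaKtide library 3 it was 12. Col12a1, Col16a1 and Loxl4 were called without each of the 10 libraries in turn. Without the libraries rich in tract and testis transcripts 19 genes were called, all lower. That fit kept only Western diet + NaKtide libraries 1 and 4. Leaving out just library 1, which goes against its depot label, gave 7. Macrophage markers summed to 185 to 987 CPM with NaKtide and 1393 to 2737 CPM without it on the Western diet, adipocyte markers to 6272 CPM in library 5 and 17835 to 22658 CPM in the other 4 with NaKtide and 13089 to 13648 CPM without it, and mitochondrial genes took 2.64 to 6.24% and 1.73 to 2.63% of counts. Their part was not tested.

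By label, the change ran the other way on the control diet. NaKtide over none gave 13 genes higher and 0 lower, against 5.26% of all genes tested higher and 1.9% lower (7.15% in all), with a median log2 fold change of 1.45 over the 37 genes and -0.23 over all genes. In all 13 the control diet + NaKtide libraries lay above the control diet libraries without overlap. Fibrillar chains made up 5, Col1a1 (2.65 ± 0.53, adjusted p = 0.00476), Col3a1 (2.18 ± 0.60, adjusted p = 0.0318), Col5a1 (2.76 ± 0.59, adjusted p = 0.00753), Col5a2 (2.54 ± 0.67, adjusted p = 0.0268) and Col5a3 (2.28 ± 0.65, adjusted p = 0.0381). Collagen VI gave 3, Col6a1 (3.08 ± 0.53, adjusted p = 0.00168), Col6a2 (3.39 ± 0.58, adjusted p = 0.00163) and Col6a3 (2.77 ± 0.70, adjusted p = 0.0206). The remaining 5 were Col12a1 (2.81 ± 0.51, adjusted p = 0.00239), Col15a1 (2.63 ± 0.57, adjusted p = 0.00820), Col16a1 (1.63 ± 0.41, adjusted p = 0.0205), Col18a1 (1.45 ± 0.28, adjusted p = 0.00344) and Loxl4 (2.49 ± 0.52, adjusted p = 0.00598). Calls fell to 8 without control diet library 3 or 4. They rose to 17 without control diet libraries 1 or 2 or control diet + NaKtide library 1. Macrophage markers summed to 1340.2 to 1973 CPM with NaKtide and 103 to 515 CPM without it, and leptin (Lep), an adipocyte hormone, to 2263 to 4392 CPM and 15.2 to 1965 CPM. Their part was not tested.

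The Western diet was compared with the control diet among visceral libraries with NaKtide. None of the 37 genes was higher and 6 fell, against 3.49% of all genes tested lower and 1.32% higher (4.82% in all); the medians were -0.78 over the set and 0.04 over all genes. The 6 were Col6a1, Col6a2, Col12a1, Col16a1, Col18a1 and Loxl4. Without control diet + NaKtide libraries 2, 4 or 5 or Western diet + NaKtide libraries 2 or 4 the count was 3, without Western diet + NaKtide library 1 it was 6, and without the libraries rich in tract and testis transcripts it was 14, all lower. Col12a1 had 3.98, 2.54, 3.27, 0.464 and 4.28 CPM in Western diet + NaKtide and 13.0, 18.4, 23.4, 45.1 and 22.0 CPM in control diet + NaKtide libraries. For Col12a1, all 5 Western diet + NaKtide libraries were below all 5 control diet + NaKtide libraries, and Col12a1 fell (log2 fold change -3.06 ± 0.52, adjusted p = 0.00257). Col16a1 had 8.995, 12.5, 20.8, 6.49 and 26.6 CPM in Western diet + NaKtide and 71.7, 87.5, 89.2, 88.7 and 74.5 CPM in control diet + NaKtide libraries. For Col16a1, the ranges did not overlap, Western diet + NaKtide libraries being the lower, and Col16a1 fell (log2 fold change -2.45 ± 0.42, adjusted p = 0.00304). Col18a1 had 213, 139, 304, 141 and 109 CPM in Western diet + NaKtide and 223, 376, 397, 387 and 433 CPM in control diet + NaKtide libraries. For Col18a1, the groups overlapped, with Western diet + NaKtide library 3 reaching the control diet + NaKtide range, and Col18a1 fell (log2 fold change -1.002 ± 0.27, adjusted p = 0.0419). Col15a1 had 368, 223, 463, 353 and 78.9 CPM in Western diet + NaKtide and 400.3, 743, 805, 1006 and 985 CPM in control diet + NaKtide libraries. For Col15a1, the groups overlapped, with Western diet + NaKtide library 3 reaching the control diet + NaKtide range, and the log2 fold change of -1.41 ± 0.55 was not called (adjusted p = 0.169). Loxl4 had 0.386, 1.69, 2.64, 1.62 and 0.306 CPM in Western diet + NaKtide and 3.41, 6.02, 5.85, 8.84 and 8.07 CPM in control diet + NaKtide libraries. For Loxl4, the ranges did not overlap, Western diet + NaKtide libraries being the lower, and Loxl4 fell (log2 fold change -2.23 ± 0.51, adjusted p = 0.0157).

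Col1a1 had 486, 73.5, 277, 122 and 86.8 CPM in Western diet + NaKtide and 439, 585, 568, 861 and 707 CPM in control diet + NaKtide libraries. For Col1a1, the groups overlapped, with Western diet + NaKtide library 1 reaching the control diet + NaKtide range, and the log2 fold change of -1.59 ± 0.51 was not called (adjusted p = 0.0860). Col1a2 had 797, 186, 448, 212 and 126 CPM in Western diet + NaKtide and 319, 456, 406, 679 and 443 CPM in control diet + NaKtide libraries. For Col1a2, the groups overlapped, with Western diet + NaKtide libraries 1 and 3 reaching the control diet + NaKtide range, and the log2 fold change of -0.38 ± 0.49 was not called (adjusted p = 0.729). Col3a1 had 1634, 295, 645, 580.3 and 207 CPM in Western diet + NaKtide and 675, 978, 766, 1836 and 922 CPM in control diet + NaKtide libraries. For Col3a1, the groups overlapped, with Western diet + NaKtide library 1 reaching the control diet + NaKtide range, and the log2 fold change of -0.62 ± 0.57 was not called (adjusted p = 0.606). Col5a1 had 169.8, 78.0, 248, 127 and 28.1 CPM in Western diet + NaKtide and 215, 359.9, 385, 538 and 498 CPM in control diet + NaKtide libraries. For Col5a1, the groups overlapped, with Western diet + NaKtide library 3 reaching the control diet + NaKtide range, and the log2 fold change of -1.62 ± 0.57 was not called (adjusted p = 0.122). Col5a2 had 144, 50.3, 100.1, 55.4 and 16.5 CPM in Western diet + NaKtide and 89.1, 159, 148, 268 and 161 CPM in control diet + NaKtide libraries. For Col5a2, the groups overlapped, with Western diet + NaKtide libraries 1 and 3 reaching the control diet + NaKtide range, and the log2 fold change of -1.17 ± 0.64 was not called (adjusted p = 0.357). Col5a3 had 440.2, 220.3, 400.0, 378 and 86.5 CPM in Western diet + NaKtide and 459, 698, 764, 880.3 and 874 CPM in control diet + NaKtide libraries. For Col5a3, the ranges did not overlap, Western diet + NaKtide libraries being the lower, and the log2 fold change of -1.27 ± 0.63 was not called (adjusted p = 0.300). In Col1a1, Col1a2, Col3a1, Col5a2 and Col5a3 the highest Western diet + NaKtide value came from library 1, the library that lacks mesothelial markers.

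Col4a1 had 1235, 549, 1407, 656 and 251 CPM in Western diet + NaKtide and 927, 1678, 1781, 2643 and 1952 CPM in control diet + NaKtide libraries. For Col4a1, the groups overlapped, with Western diet + NaKtide libraries 1 and 3 reaching the control diet + NaKtide range, and the log2 fold change of -1.13 ± 0.61 was not called (adjusted p = 0.344). Col4a2 had 605, 337, 1085, 523 and 192 CPM in Western diet + NaKtide and 827, 1489.9, 1567, 2387 and 1774 CPM in control diet + NaKtide libraries. For Col4a2, the groups overlapped, with Western diet + NaKtide library 3 reaching the control diet + NaKtide range, and the log2 fold change of -1.55 ± 0.59 was not called (adjusted p = 0.155). Col4a5 had 1.67, 5.78, 8.05, 4.87 and 3.06 CPM in Western diet + NaKtide and 4.92, 5.52, 5.999, 12.5 and 3.25 CPM in control diet + NaKtide libraries. For Col4a5, the groups overlapped, with Western diet + NaKtide libraries 2, 3 and 4 reaching the control diet + NaKtide range, and the log2 fold change of -0.45 ± 0.47 was not called (adjusted p = 0.654). Col6a1 had 373, 81.7, 387, 130.1 and 82.5 CPM in Western diet + NaKtide and 529.7, 905, 925, 1118 and 957 CPM in control diet + NaKtide libraries. For Col6a1, the highest Western diet + NaKtide library was below the lowest control diet + NaKtide library, and Col6a1 fell (log2 fold change -2.07 ± 0.51, adjusted p = 0.0225). Col6a2 had 437, 96.9, 482, 164 and 86.5 CPM in Western diet + NaKtide and 716, 1246, 1208, 1446 and 1270.2 CPM in control diet + NaKtide libraries. For Col6a2, all 5 Western diet + NaKtide libraries were below all 5 control diet + NaKtide libraries, and Col6a2 fell (log2 fold change -2.22 ± 0.55, adjusted p = 0.0244). Col6a3 had 255, 25.9, 85.8, 40.6 and 31.8 CPM in Western diet + NaKtide and 129, 218, 206, 406 and 205 CPM in control diet + NaKtide libraries. For Col6a3, the groups overlapped, with Western diet + NaKtide library 1 reaching the control diet + NaKtide range, and the log2 fold change of -1.41 ± 0.67 was not called (adjusted p = 0.273). The alternative chain Col6a5 had 0.386, 51.4, 35.2, 33.6 and 9.78 CPM in Western diet + NaKtide libraries and 33.1, 36.98, 29.2, 99.4 and 20.2 CPM in control diet + NaKtide libraries, its lowest value again in library 1.

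Lox had 77.1, 22.4, 39.6, 16.2 and 16.5 CPM in Western diet + NaKtide and 31.3, 60.3, 56.5, 104 and 58.8 CPM in control diet + NaKtide libraries. For Lox, the groups overlapped, with Western diet + NaKtide libraries 1 and 3 reaching the control diet + NaKtide range, and the log2 fold change of -0.85 ± 0.61 was not called (adjusted p = 0.485). Loxl1 had 66.3, 36.3, 112, 102 and 24.5 CPM in Western diet + NaKtide and 72.4, 95.4, 83.5, 135 and 95.2 CPM in control diet + NaKtide libraries. For Loxl1, the groups overlapped, with Western diet + NaKtide libraries 3 and 4 reaching the control diet + NaKtide range, and the log2 fold change of -0.50 ± 0.44 was not called (adjusted p = 0.591). Loxl2 had 50.4, 16.9, 28.4, 16.0 and 7.34 CPM in Western diet + NaKtide and 21.0, 33.2, 29.995, 50.3 and 33.7 CPM in control diet + NaKtide libraries. For Loxl2, the groups overlapped, with Western diet + NaKtide libraries 1 and 3 reaching the control diet + NaKtide range, and the log2 fold change of -0.49 ± 0.55 was not called (adjusted p = 0.682). P4ha1 had 30.8, 26.6, 35.7, 30.6 and 10.4 CPM in Western diet + NaKtide and 25.9, 37.6, 34.5, 29.4 and 39.6 CPM in control diet + NaKtide libraries. For P4ha1, the groups overlapped, with Western diet + NaKtide libraries 1, 2, 3 and 4 reaching the control diet + NaKtide range, and the log2 fold change of -0.31 ± 0.32 was not called (adjusted p = 0.648). Plod2 had 3.08, 6.06, 6.04, 5.10 and 3.06 CPM in Western diet + NaKtide and 3.16, 5.39, 3.69, 9.48 and 4.68 CPM in control diet + NaKtide libraries. For Plod2, the groups overlapped, with Western diet + NaKtide libraries 2, 3 and 4 reaching the control diet + NaKtide range, and the log2 fold change of -0.17 ± 0.36 was not called (adjusted p = 0.838). Serpinh1 had 335, 204, 660.4, 565 and 294 CPM in Western diet + NaKtide and 686, 1095, 1117, 936 and 1281 CPM in control diet + NaKtide libraries. For Serpinh1, the ranges did not overlap, Western diet + NaKtide libraries being the lower, and the log2 fold change of -1.31 ± 0.53 was not called (adjusted p = 0.183). Fn1 had 55.0, 94.4, 375, 79.3 and 37.9 CPM in Western diet + NaKtide and 178, 219, 186, 526 and 193 CPM in control diet + NaKtide libraries. For Fn1, the groups overlapped, with Western diet + NaKtide library 3 reaching the control diet + NaKtide range, and the log2 fold change of -1.02 ± 0.59 was not called (adjusted p = 0.391). P4ha2 was at 1.01 ± 0.74 with all libraries (adjusted p = 0.498) and at -0.88 (adjusted p = 0.0390) without the libraries rich in tract and testis transcripts.

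The visceral interaction of diet and NaKtide (the NaKtide difference on the Western diet minus that on the control diet) was tested on its own. Of the 37 genes 27 had a negative and 1 a positive interaction past the threshold, against 13.4% and 18.8% of all genes tested (32.2% in all), with medians of -2.50 over the set and 0.30 over all genes. Every fibrillar chain but Col27a1 was among the 27, with log2 interactions of Col1a1 -4.13, Col1a2 -2.10, Col3a1 -2.80, Col5a1 -4.45, Col5a2 -4.06 and Col5a3 -3.29. The 8 network chains ran between Col6a2 at -4.88 and Col4a5 at -1.93, the 5 fibril-associated and other chains between Col12a1 at -5.90 and Col14a1 at -1.84, and the 6 enzymes between Loxl4 at -4.89 and P4ha1 at -1.25, with the chaperone Serpinh1 at -2.92 and fibronectin Fn1 at -4.24. Col4a3 was the positive gene, at 2.25 ± 0.82 (adjusted p = 0.0434). The strongest was Col12a1 (-5.90 ± 0.72, adjusted p = 2.38e-05). Of the 28 genes 19 were called without each of the 20 libraries in turn, and the count ran between 19 without control diet + NaKtide library 4 and 29 without control diet + NaKtide library 1. Without the libraries rich in tract and testis transcripts the count was 18, all negative. For Col12a1, Col6a1 and Loxl4, each Western diet and control diet + NaKtide library lay above each Western diet + NaKtide and control diet library. An exchange of group labels was not tested. Leptin was at 243 to 2403 CPM with both, 2885 to 3969.6 CPM on the Western diet, 2263 to 4392 CPM with NaKtide on the control diet and 15.2 to 1965 CPM with neither.

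**Figure D3:**
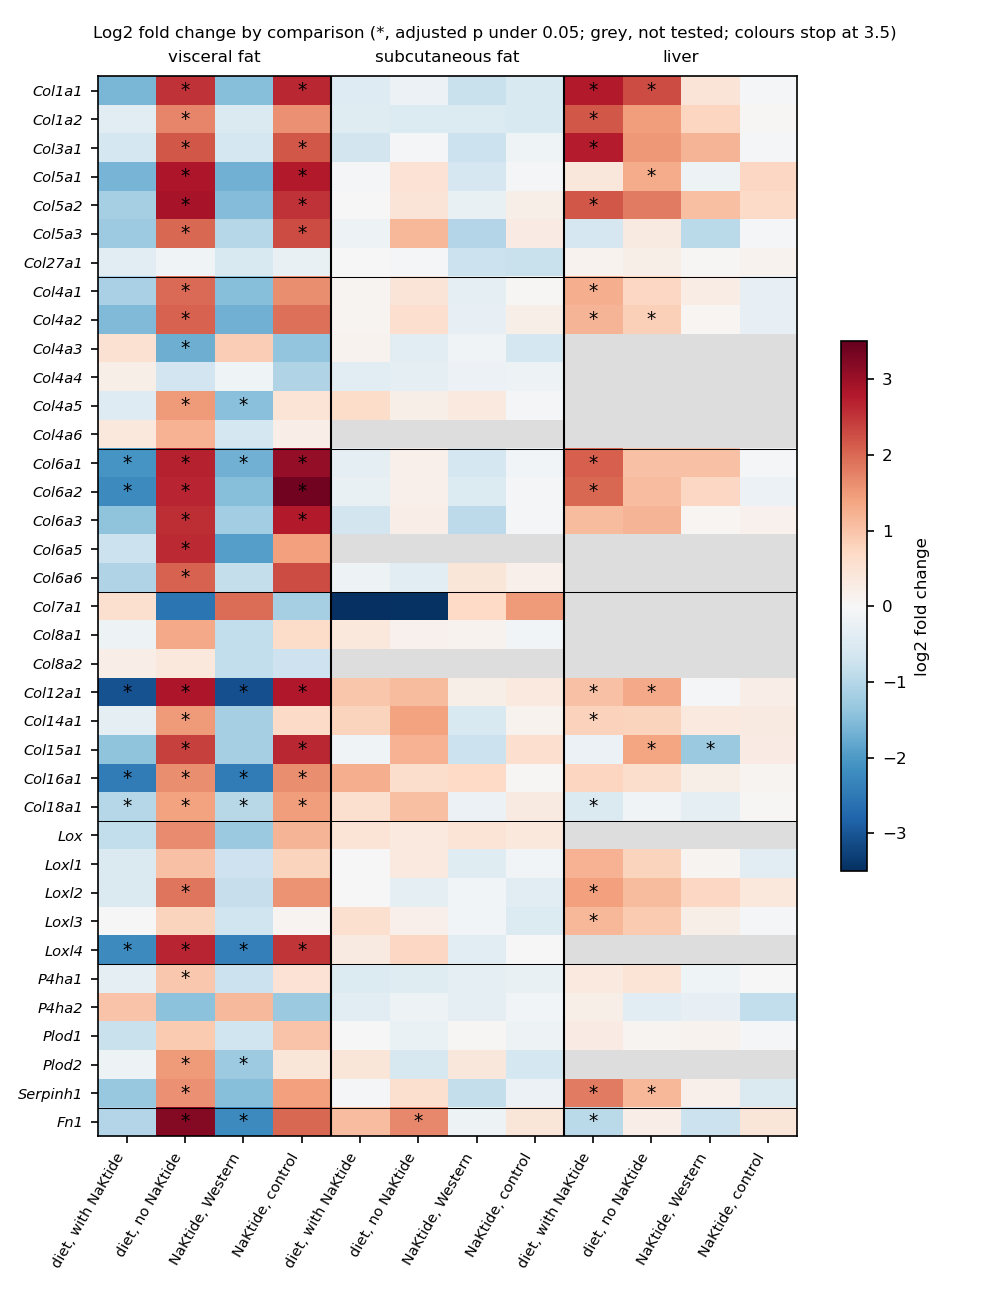
Log2 fold changes of the 37 genes (rows, by role) in the diet and NaKtide comparisons of each tissue (columns), red for higher and blue for lower in the group named first, with an asterisk where adjusted p is under 0.05 and grey where a gene was not tested. Visceral fat shows 25 genes called higher for the diet without NaKtide and 13 for NaKtide on the control diet, and 6 and 8 called lower for the diet with NaKtide and for NaKtide on the Western diet.

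Collagen I is built from Col1a1 and Col1a2 chains in a fixed proportion, so the ratio of their FPKM was followed as a description. In visceral fat Col1a1 over Col1a2 was 0.750 to 1.30 with Western diet and NaKtide, 1.71 to 2.62 on the Western diet, 2.40 to 3.02 with NaKtide on the control diet and 0.996 to 1.497 on the control diet. The ratio was higher in every Western diet and control diet + NaKtide library than in the rest, while Col1a1 and Col1a2 levels overlapped. Col4a1 over Col4a2 was steadier, at 0.872 to 1.81 over the 20 visceral libraries, and 0.976 to 1.01 within control diet + NaKtide. Col6a3 over Col6a1 had a median of 0.0967 in visceral and 0.253 in subcutaneous fat; Western diet + NaKtide library 1 gave the highest visceral ratio, 0.250, and the lowest subcutaneous ratio, 0.0864.

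Genes that process, organise or bind collagen were counted alongside, from lists that share no gene with the set. For the Western diet over control diet in visceral fat without NaKtide, 12 of 20 tested genes of collagen processing rose and 1 fell, 15 of 24 fibril organisers rose, 6 of 15 basement membrane partners rose and 1 fell, 6 of 8 collagen receptors rose and 7 of 19 genes of the TGF-beta axis rose, against 10.5% of all genes higher and 14.3% lower. Pcolce2, an enhancer of procollagen cleavage, rose by 4.18 in log2 fold change, Lum, a proteoglycan that spaces fibrils, by 3.18, Nid2, which links laminin to collagen IV, by 2.14, and the collagen receptors Mrc2, which takes up collagen for degradation, by 3.56 and Lair1, an inhibitory receptor of immune cells, by 2.48. With NaKtide over none on the Western diet, 6, 4, 1, 3 and 6 of the 20, 24, 15, 8 and 19 genes of the same lists fell and 0 rose (all genes 6.95% lower, 6.23% higher), Mrc2 at -3.57, Pcolce2 at -3.04, Ddr1, a collagen-activated kinase, at -1.76 and Acta2, smooth muscle actin, at -1.25. On the control diet NaKtide gave 8, 2, 1, 2 and 4 higher and 0 lower (5.26% and 1.9% of all genes), with Pcolce2 at 3.69 and Mrc2 at 3.63. Among NaKtide libraries the Western diet gave 4, 0, 1, 3 and 1 lower and 0 higher (3.49% and 1.32% of all genes), and the interaction was negative for 13, 11, 6, 6 and 8 and positive for 1, 1, 1, 0 and 1 (13.4% and 18.8% of all genes). Of 18 further collagen genes only 6 had enough counts in visceral fat, and 1 of them, Col20a1, fell on the Western diet without NaKtide. The interaction was positive for 1 of the 6, Col6a4 (8.34 ± 3.05, adjusted p = 0.0445), which exceeded 20 CPM in control diet libraries 4 and 5, control diet + NaKtide library 1 and Western diet + NaKtide library 5, all rich in tract and testis transcripts.

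In liver the Western diet was compared with the control diet without NaKtide. Here 6 of 25 tested genes rose and 0 fell, against 4.75% of all 12991 genes tested higher and 3.69% lower (8.44% in all), with medians of 0.91 over the set and 0.03 over all genes. They were the fibrillar chains Col1a1 and Col5a1, the basement membrane genes Col4a2 and Col15a1, Col12a1 and the chaperone Serpinh1; the groups did not overlap for Col15a1, Serpinh1 and Col4a2. The count was 3 without control diet library 1, 1 without control diet library 5 or Western diet library 1, and at most 9 without Western diet library 4, and it was 2 (Col14a1 and Col15a1) without control diet libraries 2 and 4, which held 297 and 597 CPM of muscle markers. Western diet library 1 was highest in its group for Col1a1, Col5a1, Col4a2, Col12a1 and Serpinh1 and lowest for Col15a1, and it had 110 CPM of cholangiocyte markers (27.5 to 110 CPM in the group) and 11.6% mitochondrial counts. The 8 stellate cell markers, all detected in liver, summed to 158 to 385 CPM on the Western diet and 166 to 336 CPM on the control diet, and the macrophage markers to 90.9 to 182 CPM and 50.7 to 107 CPM. Their part was not tested.

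Col1a1 had 80.2, 13.7, 5.58, 6.93 and 12.04 CPM in Western diet and 4.99, 8.39, 3.16, 5.41 and 1.95 CPM in control diet libraries. For Col1a1, the groups overlapped, with control diet library 2 reaching the Western diet range, and Col1a1 rose (log2 fold change 2.28 ± 0.63, adjusted p = 0.0266). Col1a2 had 47.4, 14.8, 7.01, 5.92 and 12.4 CPM in Western diet and 4.75, 7.17, 7.90, 9.10 and 3.32 CPM in control diet libraries. For Col1a2, the groups overlapped, with control diet libraries 2, 3 and 4 reaching the Western diet range, and the log2 fold change of 1.45 ± 0.48 was not called (adjusted p = 0.0636). Col3a1 had 112, 32.0, 20.1, 12.2 and 33.2 CPM in Western diet and 10.2, 18.4, 18.3, 20.4 and 5.86 CPM in control diet libraries. For Col3a1, the groups overlapped, with control diet libraries 2, 3 and 4 reaching the Western diet range, and the log2 fold change of 1.52 ± 0.53 was not called (adjusted p = 0.0799). Col5a1 had 14.95, 6.09, 6.30, 3.55 and 5.05 CPM in Western diet and 1.42, 3.32, 5.06, 3.03 and 1.95 CPM in control diet libraries. For Col5a1, the groups overlapped, with control diet library 3 reaching the Western diet range, and Col5a1 rose (log2 fold change 1.31 ± 0.37, adjusted p = 0.0282). Col5a2 had 4.25, 2.64, 1.44, 1.69 and 1.75 CPM in Western diet and 0, 1.05, 0.948, 1.083 and 0.195 CPM in control diet libraries. For Col5a2, the ranges did not overlap, Western diet libraries being the higher, and the log2 fold change of 1.82 ± 0.63 was not called (adjusted p = 0.0777). Without Western diet library 1 none of these 5 fibrillar genes was called.

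Col4a1 had 45.4, 23.7, 23.2, 26.05 and 29.7 CPM in Western diet and 20.4, 23.8, 17.4, 17.1 and 10.8 CPM in control diet libraries. For Col4a1, the groups overlapped, with control diet library 2 reaching the Western diet range, and the log2 fold change of 0.72 ± 0.25 was not called (adjusted p = 0.0784). Col4a2 had 40.1, 23.1, 24.5, 24.5 and 28.9 CPM in Western diet and 19.0, 20.1, 19.9, 11.5 and 8.601 CPM in control diet libraries. For Col4a2, all 5 Western diet libraries were above all 5 control diet libraries, and Col4a2 rose (log2 fold change 0.84 ± 0.25, adjusted p = 0.0357). Col6a1 had 25.999, 9.22, 5.396, 6.43 and 7.57 CPM in Western diet and 4.27, 5.25, 7.27, 6.28 and 3.91 CPM in control diet libraries. For Col6a1, the groups overlapped, with control diet libraries 3 and 4 reaching the Western diet range, and the log2 fold change of 1.04 ± 0.40 was not called (adjusted p = 0.115). Col6a2 had 17.8, 4.94, 2.70, 4.57 and 8.15 CPM in Western diet and 3.56, 4.90, 3.16, 5.198 and 1.17 CPM in control diet libraries. For Col6a2, the groups overlapped, with control diet libraries 1, 2, 3 and 4 reaching the Western diet range, and the log2 fold change of 1.075 ± 0.48 was not called (adjusted p = 0.180). Col6a3 had 6.12, 2.97, 2.52, 6.596 and 7.18 CPM in Western diet and 1.42, 3.15, 5.37, 0.866 and 0.782 CPM in control diet libraries. For Col6a3, the groups overlapped, with control diet libraries 2 and 3 reaching the Western diet range, and the log2 fold change of 1.19 ± 0.49 was not called (adjusted p = 0.147). Col12a1 had 5.61, 4.28, 4.68, 2.20 and 4.27 CPM in Western diet and 1.66, 0.525, 3.79, 0.866 and 1.95 CPM in control diet libraries. For Col12a1, the groups overlapped, with control diet library 3 reaching the Western diet range, and Col12a1 rose (log2 fold change 1.34 ± 0.38, adjusted p = 0.0315). Whether the Col4a1 and Col4a2 folds differ was not tested.

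Col15a1 had 9.01, 13.3, 14.6, 23.3 and 14.4 CPM in Western diet and 5.94, 7.52, 5.37, 4.76 and 4.69 CPM in control diet libraries. For Col15a1, the lowest Western diet library exceeded the highest control diet library, and Col15a1 rose (log2 fold change 1.39 ± 0.26, adjusted p = 0.00216). Col18a1 had 552, 599, 694, 768 and 641 CPM in Western diet and 734, 744, 634, 676 and 762 CPM in control diet libraries. For Col18a1, the groups overlapped, with Western diet libraries 3, 4 and 5 reaching the control diet range, and the log2 fold change of -0.13 ± 0.12 was not called (adjusted p = 0.571). Loxl1 had 8.16, 2.47, 1.079, 1.69 and 2.91 CPM in Western diet and 0.712, 1.57, 1.26, 3.47 and 2.35 CPM in control diet libraries. For Loxl1, the groups overlapped, with control diet libraries 2, 3, 4 and 5 reaching the Western diet range, and the log2 fold change of 0.77 ± 0.49 was not called (adjusted p = 0.362). Loxl2 had 5.27, 2.97, 1.26, 2.54 and 2.33 CPM in Western diet and 1.42, 1.40, 2.21, 1.30 and 0.586 CPM in control diet libraries. For Loxl2, the groups overlapped, with control diet libraries 1, 2, 3 and 4 reaching the Western diet range, and the log2 fold change of 1.09 ± 0.44 was not called (adjusted p = 0.134). P4ha1 had 7.48, 9.06, 9.35, 11.2 and 7.38 CPM in Western diet and 6.89, 7.87, 6.32, 4.55 and 6.26 CPM in control diet libraries. For P4ha1, the groups overlapped, with control diet library 2 reaching the Western diet range, and the log2 fold change of 0.47 ± 0.20 was not called (adjusted p = 0.155). Serpinh1 had 46.1, 19.6, 17.4, 17.1 and 23.9 CPM in Western diet and 13.8, 13.5, 10.4, 12.1 and 6.06 CPM in control diet libraries. For Serpinh1, the ranges did not overlap, Western diet libraries being the higher, and Serpinh1 rose (log2 fold change 1.15 ± 0.31, adjusted p = 0.0237). Fn1 had 411, 571, 670.2, 1144 and 578 CPM in Western diet and 683, 766, 443, 456 and 523 CPM in control diet libraries. For Fn1, the groups overlapped, with all control diet libraries reaching the Western diet range, and the log2 fold change of 0.23 ± 0.24 was not called (adjusted p = 0.597). Lox and Plod2 were near the floor, Lox at 0.510, 0, 0, 0 and 0.194 CPM on the Western diet and 0.237, 0, 0, 0.217 and 0.195 CPM on the control diet. Plod2 had 0.510, 0.494, 0.180, 0.846 and 0.388 CPM and 0, 0, 0.948, 0.433 and 0.195 CPM in the same groups, a few counts per library, and neither was tested. Col15a1 was called without each of the 10 libraries in turn, and no other gene was.

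The diet was then compared among livers with NaKtide. Western diet + NaKtide over control diet + NaKtide gave 13 genes higher and 2 lower of 25 tested, against 12.9% of all genes tested higher and 11.7% lower (24.5% in all), with medians of 1.10 over the set and -0.02 over all genes. The 13 were Col1a1, Col1a2, Col3a1, Col5a2, Col4a1, Col4a2, Col6a1, Col6a2, Col12a1, Col14a1, Loxl2 and Loxl3 and Serpinh1, and the 2 were the hepatocyte products Col18a1 and Fn1. Groups did not overlap in 11 of the 15, the exceptions being Col14a1, Col5a2, Col4a1 and Loxl2. The count stayed between 12 and 18 without single libraries, and 11 of the 15 were called in all 10 cases. Stellate cell markers summed to 312 to 411 CPM in Western diet + NaKtide and 212 to 295 CPM in control diet + NaKtide libraries, without overlap, macrophage markers to 206 to 262 CPM and 73.7 to 149 CPM, and cholangiocyte markers to 64.8 to 256 CPM and 11.03 to 30.4 CPM. Mitochondrial genes took 7.06 to 16.9% and 5.33 to 6.87% of counts, also without overlap. Their part was not tested.

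Col1a1 had 16.2, 27.2, 24.4, 45.5 and 51.0 CPM in Western diet + NaKtide and 3.52, 3.45, 2.53, 9.80 and 3.86 CPM in control diet + NaKtide libraries. For Col1a1, all 5 Western diet + NaKtide libraries were above all 5 control diet + NaKtide libraries, and Col1a1 rose (log2 fold change 2.77 ± 0.62, adjusted p = 0.00406). Col1a2 had 18.8, 23.6, 28.2, 37.5 and 41.4 CPM in Western diet + NaKtide and 4.93, 5.48, 3.33, 12.8 and 5.72 CPM in control diet + NaKtide libraries. For Col1a2, the ranges did not overlap, Western diet + NaKtide libraries being the higher, and Col1a2 rose (log2 fold change 2.18 ± 0.46, adjusted p = 0.00304). Col3a1 had 35.8, 59.6, 65.0, 111 and 209 CPM in Western diet + NaKtide and 9.71, 11.4, 10.6, 26.2 and 12.4 CPM in control diet + NaKtide libraries. For Col3a1, the lowest Western diet + NaKtide library exceeded the highest control diet + NaKtide library, and Col3a1 rose (log2 fold change 2.75 ± 0.54, adjusted p = 0.00160). Col5a1 had 4.80, 5.86, 5.64, 7.73 and 7.96 CPM in Western diet + NaKtide and 5.63, 3.05, 3.80, 7.05 and 4.17 CPM in control diet + NaKtide libraries. For Col5a1, the groups overlapped, with control diet + NaKtide libraries 1 and 4 reaching the Western diet + NaKtide range, and the log2 fold change of 0.39 ± 0.34 was not called (adjusted p = 0.408). Col5a2 had 1.51, 2.93, 2.95, 5.94 and 11.9 CPM in Western diet + NaKtide and 0.704, 1.83, 0.950, 1.31 and 0.618 CPM in control diet + NaKtide libraries. For Col5a2, the groups overlapped, with control diet + NaKtide library 2 reaching the Western diet + NaKtide range, and Col5a2 rose (log2 fold change 2.17 ± 0.53, adjusted p = 0.00738). Control diet + NaKtide library 4 held the highest control diet + NaKtide value of Col1a1, Col1a2, Col3a1 and Col5a1, and Western diet + NaKtide library 5 was highest in its group for all 5 genes and for mitochondrial counts, at 16.9%.

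Col4a1 had 32.1, 39.7, 24.97, 39.8 and 42.5 CPM in Western diet + NaKtide and 11.4, 14.0, 9.98, 25.3 and 12.5 CPM in control diet + NaKtide libraries. For Col4a1, the groups overlapped, with control diet + NaKtide library 4 reaching the Western diet + NaKtide range, and Col4a1 rose (log2 fold change 1.28 ± 0.25, adjusted p = 0.00171). Col4a2 had 28.3, 31.6, 24.2, 36.9 and 28.4 CPM in Western diet + NaKtide and 12.5, 14.0, 7.28, 19.6 and 11.3 CPM in control diet + NaKtide libraries. For Col4a2, all 5 Western diet + NaKtide libraries were above all 5 control diet + NaKtide libraries, and Col4a2 rose (log2 fold change 1.198 ± 0.24, adjusted p = 0.00224). Col6a1 had 9.74, 12.9, 24.4, 31.5 and 34.5 CPM in Western diet + NaKtide and 5.35, 5.28, 4.12, 5.74 and 5.41 CPM in control diet + NaKtide libraries. For Col6a1, the ranges did not overlap, Western diet + NaKtide libraries being the higher, and Col6a1 rose (log2 fold change 2.097 ± 0.39, adjusted p = 0.00108). Col6a2 had 5.49, 8.99, 11.3, 16.9 and 21.5 CPM in Western diet + NaKtide and 1.55, 4.06, 2.38, 5.02 and 2.63 CPM in control diet + NaKtide libraries. For Col6a2, the lowest Western diet + NaKtide library exceeded the highest control diet + NaKtide library, and Col6a2 rose (log2 fold change 2.000 ± 0.47, adjusted p = 0.00558). Col6a3 had 3.02, 2.93, 5.64, 5.94 and 9.82 CPM in Western diet + NaKtide and 1.41, 2.03, 1.11, 4.06 and 3.56 CPM in control diet + NaKtide libraries. For Col6a3, the groups overlapped, with control diet + NaKtide libraries 4 and 5 reaching the Western diet + NaKtide range, and the log2 fold change of 1.10 ± 0.47 was not called (adjusted p = 0.0886). Col12a1 had 3.02, 3.13, 4.03, 5.35 and 4.78 CPM in Western diet + NaKtide and 2.53, 1.42, 1.43, 1.43 and 2.78 CPM in control diet + NaKtide libraries. For Col12a1, the ranges did not overlap, Western diet + NaKtide libraries being the higher, and Col12a1 rose (log2 fold change 1.04 ± 0.36, adjusted p = 0.0418). Col14a1 had 31.0, 34.2, 49.7, 40.7 and 53.1 CPM in Western diet + NaKtide and 21.4, 20.3, 19.95, 36.8 and 18.9 CPM in control diet + NaKtide libraries. For Col14a1, the groups overlapped, with control diet + NaKtide library 4 reaching the Western diet + NaKtide range, and Col14a1 rose (log2 fold change 0.82 ± 0.25, adjusted p = 0.0222).

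Col15a1 had 8.10, 6.84, 4.56, 5.65 and 4.51 CPM in Western diet + NaKtide and 5.77, 4.67, 4.75, 9.68 and 9.43 CPM in control diet + NaKtide libraries. For Col15a1, the groups overlapped, with Western diet + NaKtide libraries 1, 2 and 4 reaching the control diet + NaKtide range, and the log2 fold change of -0.19 ± 0.27 was not called (adjusted p = 0.618). Col18a1 had 579.7, 476, 537, 518 and 464 CPM in Western diet + NaKtide and 735, 798, 641, 736 and 738 CPM in control diet + NaKtide libraries. For Col18a1, the ranges did not overlap, Western diet + NaKtide libraries being the lower, and Col18a1 fell (log2 fold change -0.50 ± 0.12, adjusted p = 0.00665). Loxl1 had 1.65, 2.34, 3.49, 5.65 and 5.04 CPM in Western diet + NaKtide and 1.55, 1.83, 1.74, 0.717 and 1.70 CPM in control diet + NaKtide libraries. For Loxl1, the groups overlapped, with control diet + NaKtide libraries 2, 3 and 5 reaching the Western diet + NaKtide range, and the log2 fold change of 1.23 ± 0.497 was not called (adjusted p = 0.0728). Loxl2 had 3.16, 3.71, 2.95, 8.62 and 5.84 CPM in Western diet + NaKtide and 0.844, 1.22, 1.90, 3.11 and 1.39 CPM in control diet + NaKtide libraries. For Loxl2, the groups overlapped, with control diet + NaKtide library 4 reaching the Western diet + NaKtide range, and Loxl2 rose (log2 fold change 1.44 ± 0.40, adjusted p = 0.0148). Loxl3 had 2.33, 1.95, 1.88, 2.97 and 2.65 CPM in Western diet + NaKtide and 1.69, 0.609, 0.792, 1.075 and 0.928 CPM in control diet + NaKtide libraries. For Loxl3, the ranges did not overlap, Western diet + NaKtide libraries being the higher, and Loxl3 rose (log2 fold change 1.15 ± 0.40, adjusted p = 0.0386). P4ha1 had 6.59, 7.03, 6.98, 10.7 and 9.03 CPM in Western diet + NaKtide and 5.07, 9.14, 5.54, 6.45 and 5.72 CPM in control diet + NaKtide libraries. For P4ha1, the groups overlapped, with control diet + NaKtide library 2 reaching the Western diet + NaKtide range, and the log2 fold change of 0.33 ± 0.20 was not called (adjusted p = 0.225). Serpinh1 had 16.3, 19.1, 23.6, 42.8 and 39.3 CPM in Western diet + NaKtide and 6.76, 7.92, 10.3, 9.20 and 5.41 CPM in control diet + NaKtide libraries. For Serpinh1, all 5 Western diet + NaKtide libraries were above all 5 control diet + NaKtide libraries, and Serpinh1 rose (log2 fold change 1.81 ± 0.31, adjusted p = 0.000636). Fn1 had 613, 333, 349.9, 313 and 397 CPM in Western diet + NaKtide and 689, 766, 638, 901 and 869 CPM in control diet + NaKtide libraries. For Fn1, the ranges did not overlap, Western diet + NaKtide libraries being the lower, and Fn1 fell (log2 fold change -0.94 ± 0.24, adjusted p = 0.00919). Lox had 0.137, 0.195, 0.537, 0.297 and 0.796 CPM in Western diet + NaKtide and 0, 0.203, 0, 0.239 and 0 CPM in control diet + NaKtide libraries. Plod2 had 0.412, 0.977, 1.34, 1.19 and 3.19 CPM in Western diet + NaKtide and 0.281, 0, 0.158, 0 and 0.464 CPM in control diet + NaKtide libraries, again too few counts for a test.

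**Figure D4:**
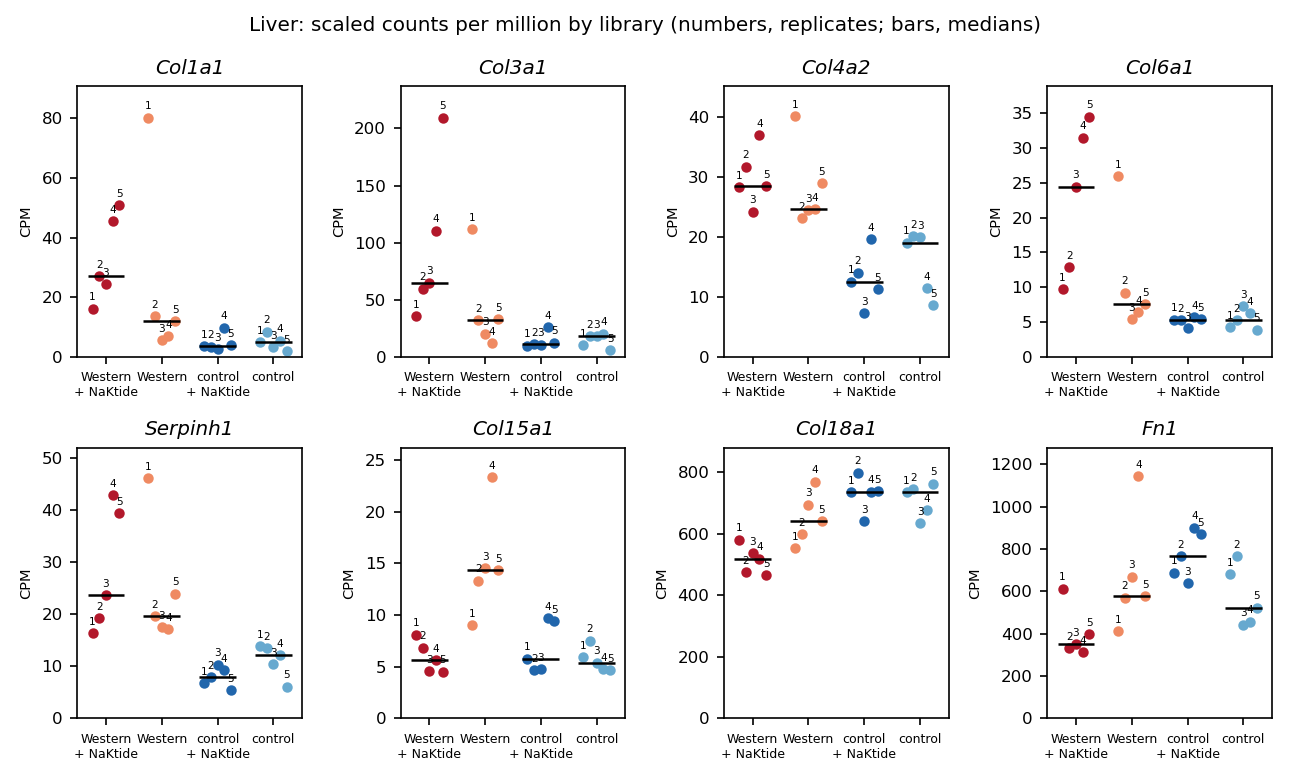
CPM of selected genes in the 20 liver libraries (axes from 0; numbered points are libraries, bars are group medians), in the order Western diet + NaKtide, Western diet, control diet + NaKtide and control diet. Col1a1 spans 16.2 to 51.0 CPM with Western diet and NaKtide, and Western diet library 1 stands alone at 80.2 CPM above 5.58 to 13.7 CPM in the other 4 of its group.

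NaKtide over none on the Western diet changed 1 gene of the set in liver. Col15a1 fell (-1.30 ± 0.26, adjusted p = 0.00644), against 2.55% of all genes tested lower and 2.24% higher (4.79% in all), with medians of 0.13 over the 25 genes and -0.02 over all genes. Its 8.10, 6.84, 4.56, 5.65 and 4.51 CPM in Western diet + NaKtide libraries lay below all 9.01, 13.3, 14.6, 23.3 and 14.4 CPM of Western diet libraries, and it was called without each of the 10 libraries. The count rested on Western diet library 1: without it 8 genes were called, 5 higher (Col1a1 1.77, Col1a2 1.56, Col3a1 1.97, Col6a1 1.63 and Col6a2 1.31) and 3 lower (Col15a1 -1.43, Col18a1 -0.39 and Fn1 -0.88). Without Western diet + NaKtide library 1 it was 4, 1 higher and 3 lower. On the control diet NaKtide gave 0 calls by edgeR, against 1.14% of all genes tested higher and 0.408% lower (1.55% in all). Unadjusted p was under 0.05 for 1, lower (all genes 2458). DESeq2 called 1, lower, and edgeR 1 without control diet + NaKtide library 2.

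The interaction of diet and NaKtide in liver was negative for 2 genes, against 2.93% of all genes tested negative and 2.07% positive (5% in all), with medians of 0.25 over the 25 genes and -0.04 over all genes. These were Col15a1 (-1.58 ± 0.38, adjusted p = 0.0249) and Fn1 (-1.18 ± 0.34, adjusted p = 0.0476). Of the other 15 libraries, control diet + NaKtide libraries 4 and 5, at 9.68 and 9.43 CPM, were the ones that overlapped the Western diet range of Col15a1, whose lowest value was 9.01 CPM in library 1. The call of Col15a1 was lost in 4 of the 20 runs that left out a library and that of Fn1 in 14. No call was left without control diet + NaKtide libraries 4 or 5 or Western diet + NaKtide libraries 3 or 4. A single call was left without control diet libraries 1, 3, 4 or 5, control diet + NaKtide library 1, Western diet libraries 2, 3 or 4 or Western diet + NaKtide libraries 2 or 5. Without Western diet library 1 there were 6, 4 positive (Col1a1, Col1a2, Col3a1 and Col6a1) and 2 negative.

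The companion lists were counted in liver as well. For the Western diet over control diet without NaKtide, 2 of 14 processing genes, 3 of 16 fibril organisers, 3 of 13 basement membrane partners, 0 of 6 receptors and 2 of 16 genes of the TGF-beta axis rose and 0 fell, against 4.75% of all genes higher and 3.69% lower. Fkbp14, a prolyl isomerase for collagen, had 1.21 in log2 fold change, Dcn, the fibril proteoglycan decorin, 1.03, Lamc1, a laminin chain, 0.83 and Tgfbi 0.71. With NaKtide 5, 8, 5, 2 and 7 of the same lists rose and 3, 0, 1, 0 and 1 fell, against 12.9% of all genes higher and 11.7% lower. Acta2, the actin of activated stellate cells and smooth muscle, had 2.84, Ltbp3, which stores latent TGF-beta, 1.80, Tgfb1 1.14, Sparc, a collagen-binding matrix protein, 1.18, Fbln2 2.12, Nid1 1.60, Pcolce 1.69 and Mia3, which loads procollagen into export carriers, -1.03. With NaKtide over none on the Western diet, Ppib, a prolyl isomerase of the endoplasmic reticulum (-1.08), and the laminin chain Lama3 (-2.14) fell, 1 of 14 processing genes and 1 of 13 basement membrane partners (2.55% of all genes lower).

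In subcutaneous fat 1 of 34 tested genes, Fn1, rose on the Western diet without NaKtide, against 2.21% of all 15226 genes tested higher and 3.4% lower (5.61% in all), with medians of 0.20 over the set and -0.02 over all genes. Fn1 had 179.7, 126, 345, 195 and 194 CPM in Western diet and 38.7, 128, 25.2, 90.8 and 44.1 CPM in control diet libraries. For Fn1, the groups overlapped, with control diet library 2 reaching the Western diet range, and Fn1 rose (log2 fold change 1.67 ± 0.48, adjusted p = 0.0470). The call was lost without control diet libraries 1, 3 or 5 or any 1 of the Western diet libraries 1 to 5, and without the 4 libraries richest in muscle transcripts, and 2 genes were called without control diet library 2. DESeq2 called 3 genes, 2 higher and 1 lower. In the other 4 comparisons of this depot edgeR called 0 genes of the set, and 0 of all 15226 genes tested (0%). At an unadjusted p under 0.05 there were 1 higher and 1 lower for the diet with NaKtide (all genes 3735). NaKtide had 0 and 2 on the Western diet (1873) and 0 and 1 on the control diet (918). The interaction had 1 and 0 (1712). DESeq2 called 1 gene, lower, in the diet comparison with NaKtide and 0 in the other 3, and edgeR called 3 there, 2 higher and 1 lower, without control diet + NaKtide library 3. Muscle markers differed by diet as given above, and their part was not tested. Among the 19 genes given by library below, control diet + NaKtide library 3 was highest in its group for each but P4ha1, Plod2 and Fn1.

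Col1a1 had 679, 493, 737, 699.5 and 736 CPM in Western diet and 468, 2278, 210.3, 599.7 and 269 CPM in control diet libraries. With NaKtide, Col1a1 had 256, 606, 461, 369 and 265 CPM on the Western diet and 367, 420.4, 1265, 432 and 178 CPM on the control diet. For Col1a1, the groups overlapped, with all Western diet libraries reaching the control diet range without NaKtide, and the diet fold was -0.19 ± 0.55 without and -0.45 ± 0.55 with NaKtide (adjusted p = 0.856 and 0.647). Col1a2 had 486, 337, 493, 512 and 617 CPM in Western diet and 519.8, 1658, 277, 575 and 369 CPM in control diet libraries. With NaKtide, Col1a2 had 339.9, 568, 339, 248 and 277 CPM on the Western diet and 225, 567, 798, 482 and 293 CPM on the control diet. For Col1a2, the groups overlapped, with all Western diet libraries reaching the control diet range without NaKtide, and the diet fold was -0.47 ± 0.41 without and -0.42 ± 0.41 with NaKtide (adjusted p = 0.497 and 0.555). Col3a1 had 1313, 849, 1195, 1358 and 1441 CPM in Western diet and 1055, 2839.8, 603, 1149 and 664 CPM in control diet libraries. With NaKtide, Col3a1 had 415, 1177, 818, 525 and 718 CPM on the Western diet and 895, 763, 2363, 987 and 711 CPM on the control diet. For Col3a1, the groups overlapped, with all Western diet libraries reaching the control diet range without NaKtide, and the diet fold was -0.04 ± 0.41 without and -0.65 ± 0.41 with NaKtide (adjusted p = 0.972 and 0.333). Col5a1 had 259, 194, 242, 239.7 and 293 CPM in Western diet and 160.2, 336, 68.4, 215 and 88.9 CPM in control diet libraries. With NaKtide, Col5a1 had 167, 219, 177, 116 and 132 CPM on the Western diet and 137, 84.7, 385, 132 and 87.7 CPM on the control diet. For Col5a1, the groups overlapped, with control diet libraries 2 and 4 reaching the Western diet range without NaKtide, and the diet fold was 0.500 ± 0.41 without and -0.03 ± 0.41 with NaKtide (adjusted p = 0.464 and 0.974). Col5a2 had 209, 112, 149.6, 154 and 226 CPM in Western diet and 97.7, 199, 53.2, 203 and 67.3 CPM in control diet libraries. With NaKtide, Col5a2 had 108, 212, 162, 107 and 124 CPM on the Western diet and 119, 59.7, 389.7, 83.5 and 64.3 CPM on the control diet. For Col5a2, the groups overlapped, with control diet libraries 2 and 4 reaching the Western diet range without NaKtide, and the diet fold was 0.46 ± 0.47 without and -0.01 ± 0.47 with NaKtide (adjusted p = 0.569 and 0.994).

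Col4a1 had 1635, 1058, 1193, 1269 and 1745 CPM in Western diet and 1159.7, 1272, 625, 1373 and 649 CPM in control diet libraries. With NaKtide, Col4a1 had 972, 1484, 1142, 1055 and 933 CPM on the Western diet and 962, 393, 2330.2, 905 and 593 CPM on the control diet. For Col4a1, the groups overlapped, with control diet libraries 1, 2 and 4 reaching the Western diet range without NaKtide, and the diet fold was 0.44 ± 0.36 without and 0.11 ± 0.36 with NaKtide (adjusted p = 0.467 and 0.884). Col4a2 had 1129.9, 763, 856, 954 and 1178 CPM in Western diet and 678, 815, 366, 945 and 435 CPM in control diet libraries. With NaKtide, Col4a2 had 778, 1020.4, 809.9, 799 and 601 CPM on the Western diet and 657, 239, 1978, 540.4 and 319 CPM on the control diet. For Col4a2, the groups overlapped, with control diet libraries 2 and 4 reaching the Western diet range without NaKtide, and the diet fold was 0.59 ± 0.42 without and 0.10 ± 0.42 with NaKtide (adjusted p = 0.398 and 0.910). Col6a1 had 367, 237, 308, 329.8 and 356 CPM in Western diet and 265, 560.4, 129, 303 and 167 CPM in control diet libraries. With NaKtide, Col6a1 had 275, 322, 186, 115 and 154 CPM on the Western diet and 224, 132, 611, 219 and 149 CPM on the control diet. For Col6a1, the groups overlapped, with control diet libraries 1, 2 and 4 reaching the Western diet range without NaKtide, and the diet fold was 0.17 ± 0.41 without and -0.35 ± 0.41 with NaKtide (adjusted p = 0.835 and 0.638). Col6a2 had 503, 305, 404, 488 and 479 CPM in Western diet and 361, 748, 159, 438 and 216 CPM in control diet libraries. With NaKtide, Col6a2 had 363, 443, 316, 216 and 219 CPM on the Western diet and 299, 196, 917, 295 and 169 CPM on the control diet. For Col6a2, the groups overlapped, with control diet libraries 1, 2 and 4 reaching the Western diet range without NaKtide, and the diet fold was 0.18 ± 0.43 without and -0.27 ± 0.43 with NaKtide (adjusted p = 0.825 and 0.729). Col6a3 had 246, 146, 210.1, 257 and 298 CPM in Western diet and 199.7, 375, 91.1, 212 and 107 CPM in control diet libraries. With NaKtide, Col6a3 had 64.9, 212, 147, 73.0 and 119 CPM on the Western diet and 112, 57.1, 499, 166 and 121 CPM on the control diet. For Col6a3, the groups overlapped, with control diet libraries 1, 2 and 4 reaching the Western diet range without NaKtide, and the diet fold was 0.24 ± 0.48 without and -0.64 ± 0.48 with NaKtide (adjusted p = 0.794 and 0.425).

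Col15a1 had 704, 521, 674, 625 and 657 CPM in Western diet and 232, 393, 103, 461 and 170.3 CPM in control diet libraries. With NaKtide, Col15a1 had 394, 473, 515, 192 and 319 CPM on the Western diet and 515, 101, 1062, 204 and 159 CPM on the control diet. For Col15a1, the ranges did not overlap, Western diet libraries being the higher without NaKtide, and the diet fold was 1.23 ± 0.51 without and -0.11 ± 0.503 with NaKtide (adjusted p = 0.156 and 0.918). Col18a1 had 354, 263, 309, 307 and 359.7 CPM in Western diet and 129, 223, 52.1, 259.9 and 101 CPM in control diet libraries. With NaKtide, Col18a1 had 259.9, 281, 329.6, 303 and 216 CPM on the Western diet and 219, 56.5, 454, 114 and 96.9 CPM on the control diet. For Col18a1, the lowest Western diet library exceeded the highest control diet library without NaKtide, and the diet fold was 1.06 ± 0.44 without and 0.56 ± 0.44 with NaKtide (adjusted p = 0.158 and 0.442). Lox had 106, 77.9, 73.6, 72.6 and 93.1 CPM in Western diet and 73.5, 28.6, 50.6, 116 and 63.2 CPM in control diet libraries. With NaKtide, Lox had 65.3, 124, 152, 154 and 98.5 CPM on the Western diet and 67.1, 16.7, 189, 86.3 and 66.4 CPM on the control diet. For Lox, the groups overlapped, with control diet libraries 1 and 4 reaching the Western diet range without NaKtide, and the diet fold was 0.35 ± 0.42 without and 0.47 ± 0.42 with NaKtide (adjusted p = 0.635 and 0.510). Loxl1 had 108, 129.6, 196, 179.6 and 115 CPM in Western diet and 103, 155, 122, 119 and 73.7 CPM in control diet libraries. With NaKtide, Loxl1 had 90.8, 119, 119.7, 95.1 and 117 CPM on the Western diet and 104, 66.8, 163, 136 and 68.1 CPM on the control diet. For Loxl1, the groups overlapped, with control diet libraries 2, 3 and 4 reaching the Western diet range without NaKtide, and the diet fold was 0.35 ± 0.25 without and 0.01 ± 0.25 with NaKtide (adjusted p = 0.391 and 0.993). Loxl2 had 28.4, 19.3, 32.97, 37.9 and 34.3 CPM in Western diet and 31.9, 75.7, 18.8, 39.3 and 26.3 CPM in control diet libraries. With NaKtide, Loxl2 had 21.1, 44.1, 28.8, 19.4 and 29.4 CPM on the Western diet and 17.0, 26.3, 45.6, 35.7 and 19.4 CPM on the control diet. For Loxl2, the groups overlapped, with all Western diet libraries reaching the control diet range without NaKtide, and the diet fold was -0.32 ± 0.33 without and -0.02 ± 0.34 with NaKtide (adjusted p = 0.577 and 0.984).

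P4ha1 had 27.9998, 29.0, 32.5, 39.6 and 34.4 CPM in Western diet and 35.2, 71.4, 45.9, 27.96 and 41.5 CPM in control diet libraries. With NaKtide, P4ha1 had 31.8, 25.8, 32.5, 23.9 and 18.6 CPM on the Western diet and 20.4, 67.4, 34.9, 34.4 and 32.8 CPM on the control diet. For P4ha1, the groups overlapped, with all Western diet libraries reaching the control diet range without NaKtide, and the diet fold was -0.43 ± 0.26 without and -0.49 ± 0.27 with NaKtide (adjusted p = 0.320 and 0.263). Plod2 had 5.26, 6.005, 3.73, 4.56 and 4.80 CPM in Western diet and 6.83, 13.1, 6.40, 5.12 and 4.93 CPM in control diet libraries. With NaKtide, Plod2 had 7.78, 6.22, 5.55, 5.66 and 6.52 CPM on the Western diet and 4.53, 3.85, 4.35, 5.51 and 5.14 CPM on the control diet. For Plod2, the groups overlapped, with Western diet libraries 1 and 2 reaching the control diet range without NaKtide, and the diet fold was -0.56 ± 0.23 without and 0.42 ± 0.24 with NaKtide (adjusted p = 0.150 and 0.270). Serpinh1 had 1045, 944, 973, 1220.1 and 922 CPM in Western diet and 628, 1135, 561, 555 and 574 CPM in control diet libraries. With NaKtide, Serpinh1 had 626, 543, 825, 418 and 425 CPM on the Western diet and 568, 286, 921, 623 and 574 CPM on the control diet. For Serpinh1, the groups overlapped, with control diet library 2 reaching the Western diet range without NaKtide, and the diet fold was 0.56 ± 0.27 without and -0.07 ± 0.27 with NaKtide (adjusted p = 0.216 and 0.906). Fn1 with NaKtide had 343, 107, 126, 206 and 140.1 CPM on the Western diet and 45.6, 196, 100.4, 58.7 and 42.6 CPM on the control diet, at 1.07 ± 0.48 (adjusted p = 0.178). Western diet + NaKtide library 1 was highest for Fn1 and lowest for Col1a1 and Col3a1 in its group, and it had 63.7 CPM of Col6a5, against 0 to 3.75 CPM in the other 19 subcutaneous libraries. Col7a1 reached 58.4 CPM in control diet + NaKtide library 2, the library with 98321 CPM of muscle markers, against 0 to 7.86 CPM in the other 19. Of companion genes, 1 of 20 processing (Pcolce2) and 1 of 19 TGF-beta genes (Smad7) rose on the Western diet without NaKtide (all genes 2.21%). The other 4 comparisons gave 0.

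The depots were compared in a joint fit of the 40 fat libraries, whose CPM differ slightly from those above because they are scaled together. On the Western diet 5 genes of 37 were higher in visceral than in subcutaneous fat and 0 lower, against 1.03% of all 17788 genes tested higher and 1.05% lower (2.08% in all), with medians of 0.31 over the set and 0.02 over all genes. All 5 are minor chains of networks, and in each the depots did not overlap. Col6a5 had 121, 64.9, 148, 61.1 and 69.1 CPM in visceral and 0.280, 0.695, 0.198, 0.137 and 0.228 CPM in subcutaneous Western diet libraries. Every visceral library was above every subcutaneous library, at a log2 fold change of 8.19 ± 1.49 (adjusted p = 0.00269). Col4a6 had 7.04, 5.29, 5.96, 5.87 and 5.81 CPM in visceral and 0.280, 0, 0.395, 0.410 and 0 CPM in subcutaneous Western diet libraries. For Col4a6 the subcutaneous libraries were at or near 0, and the fold was 4.67 ± 1.12 (adjusted p = 0.0243). Col4a5 had 16.3, 5.17, 18.8, 10.002 and 11.1 CPM in visceral and 2.24, 1.53, 2.77, 2.32 and 2.74 CPM in subcutaneous Western diet libraries. Visceral Western diet library 2 was the lowest visceral value of Col4a5 and still above the subcutaneous ones (2.39 ± 0.505, adjusted p = 0.00966). Col8a2 had 2.16, 1.29, 1.64, 1.84 and 1.502 CPM in visceral and 0.280, 0, 0, 0.137 and 0.457 CPM in subcutaneous Western diet libraries. Col8a2 was low in both depots and higher in visceral fat throughout (3.15 ± 0.75, adjusted p = 0.0217). Col6a6 was at 2.74 ± 0.70 (adjusted p = 0.0322). Mesothelial markers, at 107 to 241 CPM in visceral and 0.890 to 2.06 CPM in subcutaneous Western diet libraries (Wt1 at 0 in subcutaneous ones), moved with these genes, and their part was not tested. The count was 2 without any 1 of subcutaneous Western diet libraries 1 to 4 or visceral Western diet libraries 3 or 4, 3 without subcutaneous Western diet library 5, and at most 6. It was 9 without the fat libraries rich in muscle, tract or testis transcripts, where Col6a1, Plod2, Loxl4 and Fn1 joined.

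On the control diet 3 genes were higher and 14 lower in visceral than in subcutaneous fat, against 19.9% of all genes tested higher and 7.33% lower (27.2% in all), with medians of -0.76 over the set and 0.13 over all genes. The higher ones were Col6a5 (3.98 ± 1.27, adjusted p = 0.0213), Col4a6 (3.56 ± 1.16, adjusted p = 0.0230) and Col8a2 (2.41 ± 0.77, adjusted p = 0.0212). The lower ones were led by Col1a1 (-3.05 ± 0.59, adjusted p = 0.00190), Col3a1 (-2.60 ± 0.54, adjusted p = 0.00313), Col1a2 (-2.29 ± 0.49, adjusted p = 0.00337) and Col6a3 (-2.66 ± 0.63, adjusted p = 0.00586), each without overlap. The others were Col5a1, Col5a2, Col6a1, Col6a2, Lox, Loxl1, Loxl2, P4ha1, Plod1 and Plod2, all of which overlapped. Col6a5 had 4.68, 34.6, 17.4, 9.39 and 10.7 CPM in visceral and 0.932, 3.86, 0, 0.554 and 0 CPM in subcutaneous control diet libraries. Visceral Col6a5 was above subcutaneous Col6a5 in all libraries. Col4a6 had 0.180, 3.89, 3.23, 1.84 and 3.57 CPM in visceral and 0, 0.551, 0.572, 0 and 0 CPM in subcutaneous control diet libraries. Col8a2 had 0.360, 1.49, 1.25, 1.47 and 1.91 CPM in visceral and 0.155, 0.826, 0, 0.277 and 0 CPM in subcutaneous control diet libraries. Col4a6 and Col8a2 overlapped between depots through visceral control diet library 1. Plod1 had 123, 127, 57.5, 58.2 and 18.6 CPM in visceral and 126, 175, 121, 133 and 106 CPM in subcutaneous control diet libraries. Plod1 was at -0.78 ± 0.30 (adjusted p = 0.0492), with visceral libraries 1 and 2 inside the subcutaneous range. Of these visceral libraries 3, 4 and 5 were the ones rich in tract and testis transcripts, and all 5 subcutaneous libraries held muscle transcripts. The count was 8, with 1 higher and 7 lower, without visceral control diet library 5, and 0 without the libraries rich in muscle, tract or testis transcripts, which left 2 visceral and 2 subcutaneous control diet libraries.

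The Western diet difference itself differed between depots for 2 genes, both with the larger rise in visceral fat, against 1.56% of all genes tested positive and 0.669% negative (2.23% in all), with medians of 1.26 over the set and -0.19 over all genes. Plod2 (2.03 ± 0.43, adjusted p = 0.0152) had visceral values of 10.9, 6.23, 12.6, 12.6 and 10.6 CPM on the Western diet and 5.22, 5.60, 3.05, 1.66 and 3.19 CPM on the control diet, against subcutaneous values of 5.60, 6.25, 4.05, 4.92 and 5.14 CPM and 7.15, 13.5, 6.68, 5.403 and 5.10 CPM. Plod2 was higher on the Western diet in every visceral library and showed no such order in subcutaneous fat. Col6a1 (2.48 ± 0.67, adjusted p = 0.0424) had visceral values of 401, 481, 876, 747 and 695 CPM on the Western diet and 159, 162, 71.1, 80.4 and 25.8 CPM on the control diet, against subcutaneous values of 391, 246, 334, 356 and 381 CPM and 278, 577, 134, 319 and 173 CPM. The Col6a1 groups separated by diet in visceral and overlapped in subcutaneous fat. Plod2 was called without each of the 20 libraries in turn, and the call of Col6a1 was lost in 14 of them. A single call was left without subcutaneous control diet libraries 1, 2 or 4, any 1 of subcutaneous Western diet libraries 1 to 5, visceral control diet libraries 3, 4 or 5 or visceral Western diet libraries 3, 4 or 5. There were 4 calls without subcutaneous control diet library 3 or visceral Western diet library 2, 9 without visceral control diet library 2 and 10 without visceral control diet library 1. DESeq2 called 10 genes. Without the libraries rich in muscle, tract or testis transcripts 0 were called by edgeR. Among the companion lists, 3 of 20 processing genes, 1 of 24 fibril organisers, 2 of 15 basement membrane partners, 1 of 8 receptors, 0 of 19 genes of the TGF-beta axis and 4 of 8 further collagens were higher in visceral fat on the control diet and 5, 5, 2, 0, 2 and 0 lower, against 19.9% of all genes higher and 7.33% lower. Pcolce was at -2.02, Lum at -2.76 and Lama1 at 7.10. On the Western diet 0, 1, 1, 1, 0 and 0 were higher (all genes 1.03%), Fmod (2.82), Lama5 (1.23) and Lair1 (1.70). The depot difference in the diet effect was positive for 5 (all genes 1.56%), P3h3 (1.57), Tnc (3.08), Lum (2.91), Lama2 (1.64) and Tgfbr2 (1.82).

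**Figure D5:**
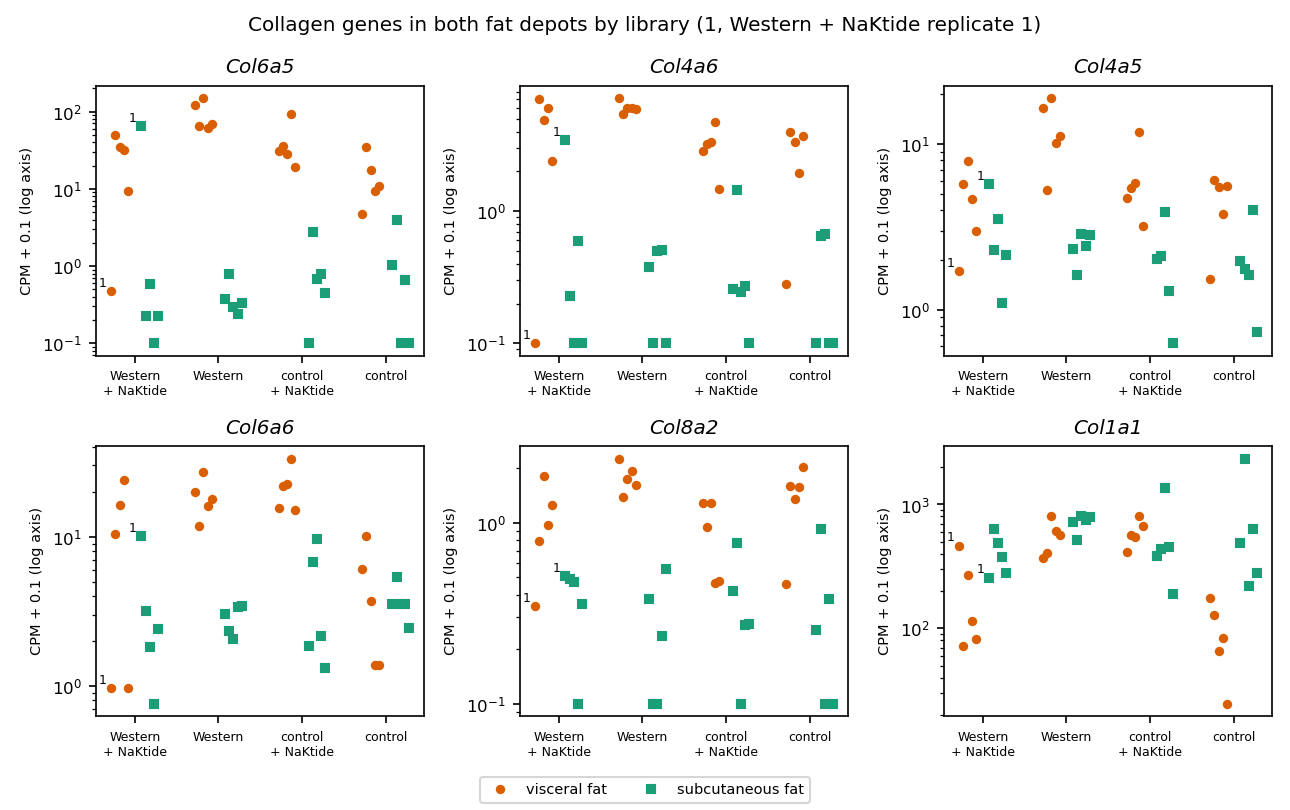
CPM + 0.1 (log axis) of 6 collagen genes in visceral (circles) and subcutaneous (squares) fat libraries by group, with Western diet + NaKtide library 1 marked by its number. Col6a5 is at 61.1 to 148 CPM in visceral and 0.137 to 0.695 CPM in subcutaneous Western diet libraries, while Western diet + NaKtide library 1 has the high value in the library labelled subcutaneous.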

How the data were processed

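RNA from liver, visceral and subcutaneous fat was sequenced as paired 50-base reads after a stranded mRNA preparation, per the labels' protocols. The deposited tables hold raw read counts per gene, normalized counts (a signal scaled per library) and FPKM. The authors trimmed with Trimmomatic 0.38, aligned with HISAT2 2.1.0 to GRCm38 and used DESeq2 1.20.0, per the submitters' processing notes; the counting program, its strand setting and the annotation were not given in the sources used here. In the deposited tables, the ratio of the normalized signal to raw counts was constant within each of the 60 libraries, and the ratio of FPKM to that signal constant for each of 36287 genes (tolerance 1e-06).

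Counts were tested with edgeR 4.0.16 (limma 3.58.1, R 4.3.3): TMM scaling, filterByExpr, a quasi-likelihood fit of 4 groups per tissue and of 8 groups over both fat depots, and Benjamini-Hochberg adjustment over all genes tested (threshold 0.05). Errors beside log2 fold changes are standard errors, and n = 5 libraries per group. CPM are TMM-scaled for genes of the set and unscaled for marker sums; FPKM serve to compare levels between genes. The smallest chi-square per degree of freedom between replicates was 3.26, so no library was treated as a duplicate. The fit was tested on simulated counts with known changes.

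Alternatives were DESeq2 1.42.0, RLE scaling, no count filter, a replicate block, each library left out in turn, and, chosen after seeing the data, fits without 8 visceral libraries whose tract and testis markers exceeded 500 CPM and without 4 subcutaneous and 2 liver libraries whose muscle markers exceeded 20000 and 100 CPM. The members and lists were chosen with earlier results of these data known. Levels per library are given for 19 genes of the set in each tissue and for up to 4 further called genes per comparison with the smallest p, and at most 3 called companion genes per list and comparison are named. The RefSeq promoter table gave the sequences.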

Additional observations from a re-analysis of the deposited data

Results flagged for a closer look

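A library of a group of 5 was listed where its gap to the next value took more of the group's range than Dixon's critical value at the 95% level, which chance gives in about 1 group in 20; 39 of 228 sets of a gene and a group were listed. In liver, control diet + NaKtide library 4 stood above its group with 9.80 CPM of Col1a1, 12.8 CPM of Col1a2, 26.2 CPM of Col3a1 and 25.3 CPM of Col4a1 and below its group with 0.717 CPM of Loxl1. In liver, Western diet library 1 stood above its group with 80.2 CPM of Col1a1, 47.4 CPM of Col1a2, 112 CPM of Col3a1, 14.95 CPM of Col5a1, 25.999 CPM of Col6a1, 8.16 CPM of Loxl1 and 46.1 CPM of Serpinh1. In subcutaneous fat, control diet library 2 stood above its group with 2278 CPM of Col1a1, 1658 CPM of Col1a2, 2839.8 CPM of Col3a1, 13.1 CPM of Plod2 and 1135 CPM of Serpinh1. In subcutaneous fat, control diet + NaKtide library 3 stood above its group with 1265 CPM of Col1a1, 2363 CPM of Col3a1, 1978 CPM of Col4a2, 385 CPM of Col5a1, 389.7 CPM of Col5a2, 611 CPM of Col6a1, 917 CPM of Col6a2 and 499 CPM of Col6a3. In subcutaneous fat, Western diet library 2 stood below its group with 493 CPM of Col1a1. In subcutaneous fat, Western diet + NaKtide library 2 stood above its group with 568 CPM of Col1a2. In visceral fat, Western diet library 3 stood above its group with 830.3 CPM of Col1a2, 1929 CPM of Col3a1 and 1279 CPM of Fn1. In visceral fat, control diet + NaKtide library 4 stood above its group with 1836 CPM of Col3a1 and 526 CPM of Fn1. In visceral fat, Western diet library 2 stood below its group with 985 CPM of Col4a2. In liver, control diet + NaKtide library 3 stood below its group with 4.12 CPM of Col6a1. In visceral fat, Western diet + NaKtide library 1 stood above its group with 255 CPM of Col6a3. In visceral fat, control diet + NaKtide library 1 stood below its group with 223 CPM of Col18a1. In visceral fat, Western diet library 1 stood below its group with 726 CPM of Serpinh1. In liver, Western diet + NaKtide library 1 stood above its group with 613 CPM of Fn1. In visceral fat, Western diet + NaKtide library 3 stood above its group with 375 CPM of Fn1.

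Differences between effects passed their own test in 32 cases. In liver the diet effect with NaKtide minus that without it was -1.18 for Fn1 and -1.58 for Col15a1 on the log2 scale. In visceral fat the same interaction was -4.76 for Col6a1, -2.42 for Col18a1, -4.13 for Col1a1, -3.29 for Col5a3, -1.70 for Plod1, -1.25 for P4ha1, -4.88 for Col6a2, -1.84 for Col14a1, -2.50 for Lox, -4.89 for Loxl4, -4.06 for Col5a2, -2.80 for Col3a1, -4.24 for Fn1, -4.45 for Col5a1, -3.79 for Col15a1, -2.10 for Col1a2, -1.93 for Col4a5, -3.11 for Col4a1, -3.62 for Col4a2, -5.90 for Col12a1, -1.67 for Plod2, -2.37 for Loxl2, -4.08 for Col16a1, -3.13 for Col6a6, -4.00 for Col6a3, -2.92 for Serpinh1, 2.25 for Col4a3 and -3.34 for Col6a5. The Western diet effect in visceral minus that in subcutaneous fat was 2.48 for Col6a1 and 2.03 for Plod2. The cell make-up of these libraries, given with the results, was not tested as a source of any of them.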

How the results depend on the processing

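The settings below moved a count past 1.5 times or changed its direction. Shares of all genes are not given. DESeq2 called 3 genes for NaKtide on the Western diet and 1 for NaKtide on the control diet in liver, 3 for the diet without NaKtide and 1 for the diet with NaKtide in subcutaneous fat, 14 for NaKtide on the Western diet and 20 for NaKtide on the control diet in visceral fat, and 10 for the depot difference in the diet effect. With no low-count filter the visceral counts were 15 for the diet without NaKtide, 2 for the diet with it, 3 for NaKtide on the Western diet and 18 for the interaction, and the depot counts were 3 on the Western diet and 1 for the difference in the diet effect. RLE scaling gave 1 call in the liver interaction and 0 for the subcutaneous diet comparison. Without the libraries rich in other tissues' transcripts (chosen after seeing the data), the counts were 2 for the liver diet comparison without NaKtide, 1 for the liver interaction, 0 for the subcutaneous diet comparison, and in visceral fat 16 for the diet without NaKtide, 14 with NaKtide, 19 for NaKtide on the Western diet and 18 for the interaction. Between depots they were 0 on the control diet, 9 on the Western diet and 0 for the difference in the diet effect. Under that exclusion P4ha2 turned to -0.88 for the visceral diet comparison with NaKtide and -0.83 for NaKtide on the Western diet, and P4ha1 to 0.0089 between depots on the control diet. The cause was not tested. The labels do not say that replicate numbers pair the libraries. Same-numbered libraries deviated together (correlation over 0.1) in 5 of 30 pairs in liver, 9 of 30 in subcutaneous fat, 11 of 30 in visceral fat and 22 of 80 across depots. All 5 pairs did so between visceral control diet + NaKtide and Western diet libraries (lowest 0.315), groups not compared directly. A library correlated best with its own number in 3, 4, 2 and 15 of these. With the replicate block, the liver diet comparison without NaKtide had 2 calls and the liver interaction 0; no other count moved past 1.5 times. Leaving out 1 library at a time gave, for the diet with NaKtide, the diet without it, NaKtide on the Western diet, NaKtide on the control diet and the interaction, 12 to 18, 1 to 9, 1 to 8, 0 to 1 and 0 to 6 calls in liver, and 3 to 7, 12 to 30, 3 to 12, 8 to 17 and 19 to 29 in visceral fat. In subcutaneous fat it gave 0 to 3 and 0 to 2 for the first 2 and 0 for the other 3. Between depots it gave 2 to 6 on the Western diet, 8 to 21 on the control diet and 1 to 10 for the difference. The highest liver counts of 8 for NaKtide on the Western diet and 6 for the interaction, without Western diet library 1, held more positive than negative calls, against the direction with all libraries. Genes with a few counts per library, among them Lox and Plod2 in liver, allow no statement on differences at this depth.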
